A study of Mus musculus with 18 samples.

Results

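The comparison described here is between right tumours of mice given IFN-alpha-pMC and right tumours of untreated control mice. All genes of the 3 IFN-alpha-pMC libraries were set against the 3 control libraries, 6 of the 18 libraries in the series. The tumours were MO4, an ovalbumin-expressing derivative of the mouse melanoma line B16F10, grown subcutaneously in C57BL/6 mice in the right and the left hindlimb, each inoculated with 100000 cells on day 0. IFN-alpha-iPSC-pMCs, cells derived from induced pluripotent stem cells and named for interferon alpha, were placed beside the right tumour in doses of 1000000 cells on days 5, 6 and 7. Control mice received no cells at all, so the contrast holds both the injection and the interferon label. Another right-side group received iPSC-pMCs without that label on the same days and is used below to set the label apart from the injection. Tumour RNA was taken on day 11, and poly(A) libraries were made with a stranded kit. The labels give neither the age or sex of the mice nor the form of interferon carried by the cells. They also do not say that each sample of a group is another mouse, and p-values then speak of the spread among samples, which may be technical.

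Interferon alpha is a type I interferon that binds a receptor present on nearly all cells, made of the Ifnar1 and Ifnar2 chains. The receptor activates the kinases Jak1 and Tyk2, which phosphorylate Stat2 and related factors. With Irf9 these enter the nucleus, bind interferon-stimulated response elements and switch on antiviral effectors, antigen presentation genes and chemokines. Interferon gamma, made by T cells and NK cells, uses a separate receptor, and many of its targets overlap with those of type I interferon. In B16 melanoma, tumour cells carry little MHC class I at rest and raise it when exposed to interferon. RNA of whole tumours mixes tumour cells with immune, stromal and surrounding tissue cells, so more cells of a type and more RNA per cell cannot be told apart in any value below.

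Library totals were 17435956 to 23430259 counts in the IFN-alpha-pMC libraries and 17514877 to 20852323 in the control libraries. Levels are given as CPM, counts per 1000000 of the library total after scaling by trimmed means of M values (TMM). For a gene with 0 counts in a library the expected count may be up to 3. Per 1000000 of the unscaled library total, 3 counts equal 0.128 to 0.172 in IFN-alpha-pMC libraries and 0.144 to 0.171 in control libraries. Averages are means ± SD over the 3 libraries of a group, SE stands for the standard error of the log2 fold change, and intervals and limits cover counting error only. The libraries numbered 3 stood apart from their own groups in opposite directions. The deviation of a gene from its mean over all 18 libraries correlated with its transcript length at Spearman's rho 0.37 in IFN-alpha-pMC library 3, against -0.30 and -0.41 in libraries 1 and 2. The same rho was -0.49 in control library 3, against 0.33 and 0.55 in control libraries 1 and 2. A named gene whose call changed without both of these libraries is given with that value too. List counts without both are given for some lists only, and counts of other lists changed as well. Read pairs assigned to no feature made up 4.52, 4.04 and 5.96% of each IFN-alpha-pMC library, against 8.96, 12.21 and 6.87% of each control library; the part of this gap in the results was not tested. The mean log2 CPM of 23 skeletal muscle fibre genes was 5.6, 5.72 and 6.73 in the IFN-alpha-pMC libraries, against 4.98, 0.61 and 2.37 in the control libraries, and this muscle score enters below as a covariate. The melanoma label held in every library: Pmel, which builds the melanosome fibrils, had 8644, 8952 and 7740 CPM in IFN-alpha-pMC tumours, against 6659, 7535 and 8671 CPM in control tumours.

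Right tumours of mice given IFN-alpha-pMC held more RNA of interferon-inducible, antigen presentation, T cell, NK cell and monocyte genes than right tumours of untreated mice. They held less RNA of a smaller set of genes, among them genes of sterol synthesis and red cells. Of 20 endothelial genes 4 were called lower, and none without IFN-alpha-pMC library 1, without IFN-alpha-pMC library 2 or without control library 1. Of 14849 genes tested, 1303 were higher in IFN-alpha-pMC tumours (8.78% of those tested) and 298 were lower (2.01%), at an adjusted p under 0.05 by the two-sided quasi-likelihood F test of edgeR with Benjamini-Hochberg adjustment over all genes tested. With the 2 groups fitted alone, without the other libraries to estimate the spread, it called 566 genes higher (3.93%) and 16 lower (0.111%). The gene lists described below shrank in that fit too, to 12 of 35 antiviral effectors, 9 of 17 interferon-inducible GTPases, 17 of 21 T cell receptor signalling genes and 7 of 24 monocyte and macrophage markers called higher, while 1 of 7 erythroid, 0 of 18 sterol and 0 of 20 endothelial genes were called lower. The median log2 fold change was 1.81 among the genes that rose, -1.05 among those that fell and -0.03 over all genes tested. A difference of at least 4-fold was found for 543 of the genes that rose and for 29 of those that fell. In 1286 of the genes that rose, all 3 IFN-alpha-pMC libraries lay above all 3 control libraries, which held for 13.3% of all genes tested. Among the genes that fell, 189 had all 3 IFN-alpha-pMC libraries below all 3 control libraries, which held for 5.31% of all genes tested. The genes that rose carried 7.88, 8.11 and 8.37% of the scaled counts in the 3 IFN-alpha-pMC libraries, against 2.92, 3.93 and 3.70% in the 3 control libraries. Leaving out each of the 6 libraries in turn kept 778 of the higher calls and 47 of the lower calls in every such fit. Of the genes tested in each such fit, 7.42% were called higher without IFN-alpha-pMC library 1, 6.85% without 2 and 8.47% without 3, and 6.45% without control library 1, 6.77% without 2 and 13% without 3. Lower calls made up 0.645% without IFN-alpha-pMC library 1, 0.53% without 2 and 12.2% without 3, and 0.798% without control library 1, 1.19% without 2 and 13.1% without 3. Without both right libraries numbered 3 the test called 3471 genes higher (23.1%) and 3085 lower (20.6%), and 1186 of the 1303 and 277 of the 298 remained called. Without these and also without left IFN-alpha-pMC library 1, 28.4% of genes were called higher and 26.1% lower, and DESeq2 on all libraries called 9.76% higher and 4.56% lower.

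**Figure D1:**
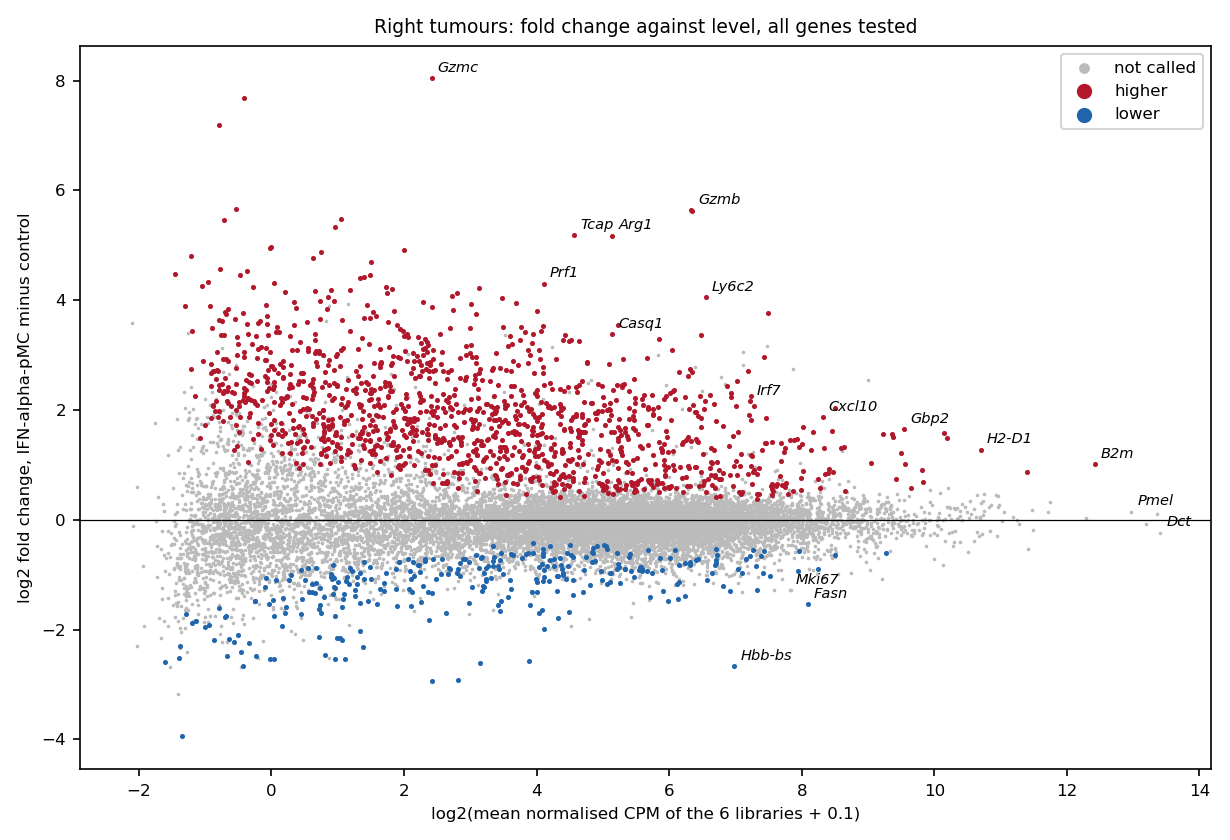
Log2 fold change of IFN-alpha-pMC over control right tumours against the mean level of the 6 libraries, for the 14849 genes tested; each point is a gene, red where it was called higher (1303 genes), blue where it was called lower (298) and grey where it was not called. Gzmc, Gzmb, Tcap and Arg1 lie far above 0, B2m and H2-D1 are among the most abundant genes that rose, and the pigment genes Pmel and Dct lie near 0 at the right edge.

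Among genes averaging at least 5 CPM, those of cytotoxic granules were among the largest rises. Gzmc, a granzyme of strongly activated killer cells, had 633 counts over the IFN-alpha-pMC libraries and 2 over the control libraries. The fitted value depends on so few counts; the ratio per library total carries a 95% binomial interval of 81.8 to 2457. Gzma had 144, 233 and 97.5 CPM in IFN-alpha-pMC tumours, against 1.55, 2.23 and 5.94 CPM in control tumours (log2 fold change 5.64, SE 0.51, adjusted p = 4.96e-06). Prf1, the pore former that lets granzymes enter a target, had 25.6, 33.1 and 39.3 CPM in IFN-alpha-pMC tumours, against 0.640, 2.44 and 1.88 CPM in control tumours (log2 fold change 4.30, SE 0.37, adjusted p = 2.96e-06). No control library of either gene came near the lowest IFN-alpha-pMC library, and this ranking held only genes whose groups did not overlap. The other genes of this kind were Gzmb, Arg1, the muscle titin-cap gene Tcap, Lipg, Car4, Ano5 and Il1rl1. Lipg, endothelial lipase, averaged 7.55 ± 1.6 CPM in IFN-alpha-pMC and 0.237 ± 0.153 CPM in control tumours (log2 fold change 4.91). Il1rl1, the receptor for interleukin 33, averaged 6.11 ± 0.892 CPM in IFN-alpha-pMC and 0.324 ± 0.106 CPM in control tumours (log2 fold change 4.24). Car4, a membrane carbonic anhydrase, was at 3.07, 10.7 and 2.05 CPM in IFN-alpha-pMC tumours, against 0.183, 0.262 and 0.125 CPM in control tumours, so that IFN-alpha-pMC library 2 was well above the other two. Among the genes called higher the largest gains in CPM were in B2m, Ctsb, H2-D1, Iigp1, H2-K1 and Gbp2, which are genes of antigen presentation, lysosomal proteolysis and interferon-inducible GTPases.

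**Figure D2:**
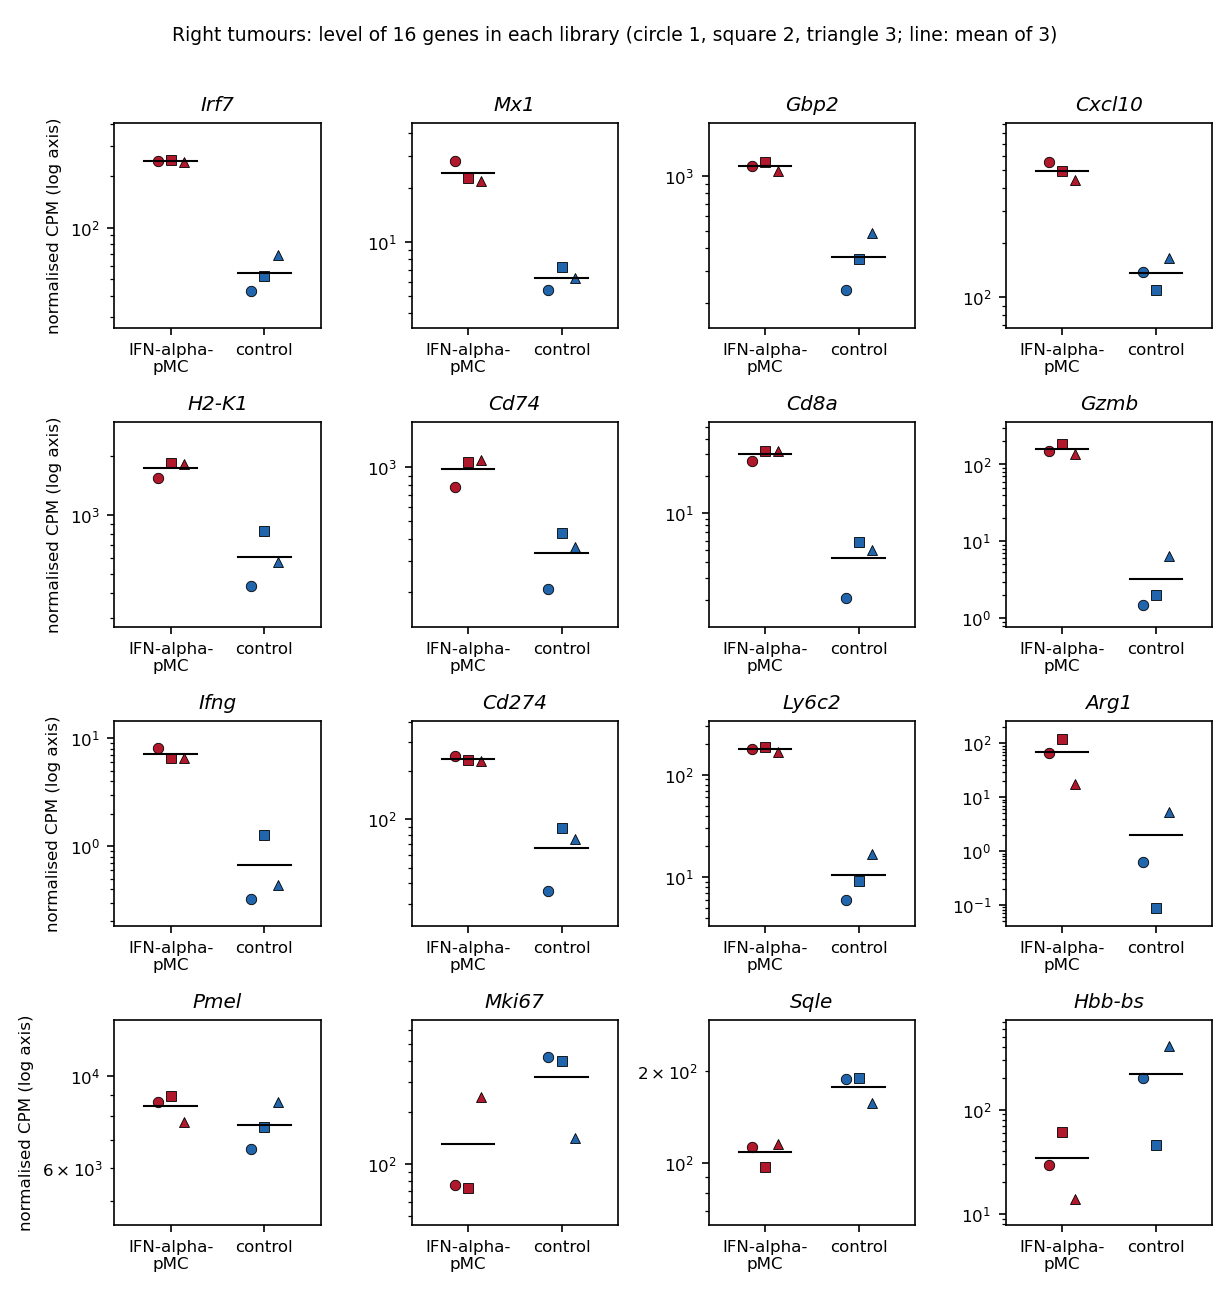
Normalised CPM on a log axis in each right library of IFN-alpha-pMC (red) and control (blue) tumours for 16 genes; circle, square and triangle are libraries 1, 2 and 3 and the line is the mean of 3. Irf7, Gbp2, Gzmb, Cd274 and Ly6c2 separate the groups fully, Pmel overlaps, and for Mki67 library 3 of each group lies toward the other group.

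The interferon genes themselves were hardly seen. Of 18 type I interferon genes listed, 8 were in the files, and these held between 0 and 2 counts per gene over the 3 libraries of either group, too few to be tested. Pairs aligning to more than 1 place are not in the counts and interferon alpha genes are near copies of each other, so these counts do not check what the injected cells carried. Among 20 receptors, kinases and transcription factors of interferon signalling, 11 rose and none fell, with a median log2 fold change of 0.63. Without both libraries numbered 3, 2 of the 20 were called lower, against 20.6% of all genes tested. The count of genes that rose was 7 without control library 1. The receptor chain Ifnar1 had 99.2, 95.6 and 111 CPM in IFN-alpha-pMC tumours, against 108, 106 and 87.9 CPM in control tumours, with overlapping groups (adjusted p = 0.963). Ifngr1, a chain of the interferon gamma receptor, had 63.0, 66.1 and 49.6 CPM in IFN-alpha-pMC tumours, against 23.2, 24.5 and 35.9 CPM in control tumours (log2 fold change 1.10, SE 0.18, adjusted p = 0.000439). The second type I chain, Ifnar2, had 37.1, 38.5 and 40.8 CPM in IFN-alpha-pMC tumours, against 24.8, 26.7 and 26.9 CPM in control tumours (log2 fold change 0.57, SE 0.14, adjusted p = 0.0117). Both Ifngr1 and Ifnar2 were higher in all 3 IFN-alpha-pMC libraries than in any control library.

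Several transcription factors of the response rose. Irf7, which amplifies the type I interferon response, had 243, 248 and 241 CPM in IFN-alpha-pMC tumours, against 42.5, 52.2 and 69.1 CPM in control tumours (log2 fold change 2.16, SE 0.18, adjusted p = 2.80e-06). Irf5, a relative that acts mainly in myeloid and B cells, had 42.7, 45.6 and 51.2 CPM in IFN-alpha-pMC tumours, against 8.73, 11 and 12.1 CPM in control tumours (log2 fold change 2.13, SE 0.18, adjusted p = 3.05e-06). Irf8, needed for monocyte and dendritic cell development, had 66.3, 67.4 and 63.3 CPM in IFN-alpha-pMC tumours, against 12.9, 17.1 and 25.2 CPM in control tumours (log2 fold change 1.84, SE 0.21, adjusted p = 2.58e-05). For all 3 factors the lowest IFN-alpha-pMC library was more than 2-fold above the highest control library. Irf1, a target of interferon gamma, rose too (log2 fold change 1.23, SE 0.18, adjusted p = 0.00015), and so did Stat4, which carries interleukin 12 signals in T and NK cells (log2 fold change 1.97, SE 0.26, adjusted p = 8.01e-05). Stat2 rose as well (log2 fold change 0.74, SE 0.19, adjusted p = 0.0178), and Irf9 had 122, 119.8 and 97.2 CPM in IFN-alpha-pMC tumours, against 75.8, 76.1 and 116 CPM in control tumours (adjusted p = 0.185; without both libraries numbered 3, log2 fold change 0.67 and adjusted p = 0.000163). The call of Stat2 was lost without IFN-alpha-pMC library 3 (adjusted p = 0.118) or control library 1 (0.143) or both libraries numbered 3 (0.0734), and that of Ifnar2 without control library 1 (0.11).

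Of 12 feedback inhibitors of interferon signalling 5 rose and none fell. Without both libraries numbered 3, 2 of them were called lower, against 20.6% of all genes tested. Socs1, which blocks Janus kinases, had 15.9, 16.8 and 15.6 CPM in IFN-alpha-pMC tumours, against 3.70, 5.02 and 5.07 CPM in control tumours (log2 fold change 1.81, SE 0.26, adjusted p = 0.000144). Usp18, which removes the ubiquitin-like Isg15 and restrains the type I receptor, had 139, 147 and 100.5 CPM in IFN-alpha-pMC tumours, against 50.7, 58.8 and 92.5 CPM in control tumours (log2 fold change 0.94, SE 0.20, adjusted p = 0.00515). Control library 3 was the highest control for Usp18 and came within 9 CPM of IFN-alpha-pMC library 3. Socs3 and the phosphatase gene Ptpn6 rose by 1.21 and 0.95 on the log2 scale (adjusted p = 0.000236 and 0.000129).

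Antiviral effectors rose broadly: 25 of 35 tested members were higher and none lower, with a median log2 fold change of 0.95. The number of antiviral genes called higher was 16 without control library 1. The number of them called lower was 2 without IFN-alpha-pMC library 3 or without both libraries numbered 3. Over all genes tested these fits called 12.2 and 20.6% lower, in that order. Mx1, read here as RNA only, had 28, 22.6 and 21.8 CPM in IFN-alpha-pMC tumours, against 5.39, 7.24 and 6.32 CPM in control tumours (log2 fold change 1.93, SE 0.21, adjusted p = 1.86e-05). Rsad2, the gene of viperin, had 165, 203 and 186 CPM in IFN-alpha-pMC tumours, against 50.8, 84.4 and 58.0 CPM in control tumours (log2 fold change 1.52, SE 0.22, adjusted p = 0.000179). Ifit3, an RNA-binding partner of other Ifit proteins, had 395, 366 and 308 CPM in IFN-alpha-pMC tumours, against 108, 167 and 152 CPM in control tumours (log2 fold change 1.32, SE 0.19, adjusted p = 0.000138). The 2 groups did not overlap for any of these 3 genes, and the control libraries held them at clearly measurable levels. Oas3, which makes the second messenger that activates RNase L, had 35.9, 40.4 and 75.5 CPM in IFN-alpha-pMC tumours, against 11.4, 17.1 and 10.1 CPM in control tumours (log2 fold change 1.97, SE 0.27, adjusted p = 0.000104). Oasl2, an oligoadenylate synthetase relative, rose too (log2 fold change 1.17, SE 0.22, adjusted p = 0.002). For both, IFN-alpha-pMC library 3 was the highest. Ifit1bl1 had the largest log2 fold change of the tested members (log2 fold change 3.17, SE 0.49, adjusted p = 0.000316), at an average of 21.1 ± 8.83 CPM in IFN-alpha-pMC and 2.38 ± 1.14 CPM in control tumours.

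Of 20 nucleic acid sensors and adaptors 13 rose and none fell. Without both libraries numbered 3, 15 of them were called higher and 1 lower, against 23.1% and 20.6% of all genes tested. Tlr13, the mouse endosomal receptor for bacterial ribosomal RNA, had 42.2, 41.5 and 53.4 CPM in IFN-alpha-pMC tumours, against 8.14, 11.2 and 12 CPM in control tumours (log2 fold change 2.13, SE 0.20, adjusted p = 4.99e-06). The DNA sensor Cgas had 26.0, 23.2 and 20.0 CPM in IFN-alpha-pMC tumours, against 17.6, 17.9 and 20.0 CPM in control tumours, and the groups touched (adjusted p = 0.151; without both libraries numbered 3, log2 fold change 0.47 and adjusted p = 0.0117). Aim2, another DNA sensor, averaged 9.53 ± 2.17 CPM in IFN-alpha-pMC and 5.09 ± 1.72 CPM in control tumours (adjusted p = 0.0718; without both libraries numbered 3, log2 fold change 1.38 and adjusted p = 0.00388). Tlr9, the endosomal receptor for unmethylated DNA, averaged 20.0 ± 15.1 CPM in IFN-alpha-pMC and 7.61 ± 4.35 CPM in control tumours (adjusted p = 0.0541), and most of its level in IFN-alpha-pMC tumours was in library 3.

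The interferon-inducible GTPases, which attack the membranes around intracellular parasites and bacteria, rose almost as a whole. Of 17 tested, 16 rose and none fell, with a median log2 fold change of 1.56, against -0.03 over all genes. Gbp2 had 1128, 1197 and 1059 CPM in IFN-alpha-pMC tumours, against 237, 348 and 488 CPM in control tumours (log2 fold change 1.66, SE 0.22, adjusted p = 7.76e-05). Gbp11 had 26.3, 21.8 and 17.5 CPM in IFN-alpha-pMC tumours, against 1.28, 3.36 and 1.75 CPM in control tumours (log2 fold change 3.35, SE 0.30, adjusted p = 4.99e-06). Every IFN-alpha-pMC library was above every control library for both, and control library 1 was the lowest. Among the immunity-related GTPases, Igtp averaged 987 ± 45.8 CPM in IFN-alpha-pMC and 345 ± 79.5 CPM in control tumours (log2 fold change 1.51). Irgm1 averaged 1005 ± 88.5 CPM in IFN-alpha-pMC and 497 ± 95.6 CPM in control tumours (log2 fold change 1.02). The most abundant of these, Iigp1, averaged 1697 ± 301 CPM in IFN-alpha-pMC and 566 ± 220 CPM in control tumours (log2 fold change 1.58). Gbp4 and Gbp3 rose by 1.62 and 1.41 on the log2 scale. When the muscle score was a covariate 16 of the 17 were called higher, and without both right libraries numbered 3 also 16, against 9 with the 2 groups fitted alone.

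Because these groups moved together, the 250 bases before each gene start in RefSeq (build GRCm38.p6) were searched for 2 letter patterns. The first was GAAA, any 2 bases and GAAA again, the core of an interferon-stimulated response element, on either strand with overlapping matches counted. The second was TTC, any 3 bases and GAA, the core of a gamma-activated site, which reads the same on both strands. The first pattern was in 2.98% of 32841 promoters of the table, in 8.13% of 1242 promoters of genes that rose, in 1.81% of 276 promoters of genes that fell and in 2.31% of 12064 promoters of tested genes that were not called. Among the GTPases 9 of 11 promoters held it (81.8%, from 10 of 17 tested genes with an entry), and among the antiviral effectors 11 of 31 (35.5%, 26 of 35 genes). None of 18 promoters of T cell receptor signalling genes held it. Of the other lists searched, granule killing genes held it in 3 of 19 promoters (15.8%). Interferon receptors, kinases and transcription factors held it in 3 of 21 (14.3%) and T cell chemokine ligands in 1 of 5 (20%). The immunoproteasome and MHC class II lists each held it in 1 of 12 (8.33%). The second pattern was in 7.02% of all promoters, 8.13% of those of genes that rose and 45.5% of those of the GTPases. Such matches are a description of letters and not of binding. One stretch of 100 bases is shown for each of 5 lists, from the member with the smallest p that held the first pattern, with the match in capitals, 5′ to 3′ along the gene's strand. The stretches are chr5:120777680-120777779 (minus strand, match at -75 to -66 from the start) for Oas3, chr3:142559944-142560043 (plus strand, 2 overlapping matches on the opposite strand) for Gbp3, chr1:52008098-52008197 (plus, -97 to -88) for Stat4, chr2:122147503-122147602 (plus, -139 to -130) for B2m and chr5:92349040-92349139 (minus, -213 to -204) for Cxcl10.
Oas3: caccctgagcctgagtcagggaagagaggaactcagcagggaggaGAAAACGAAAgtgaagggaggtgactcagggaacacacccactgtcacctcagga
Gbp3: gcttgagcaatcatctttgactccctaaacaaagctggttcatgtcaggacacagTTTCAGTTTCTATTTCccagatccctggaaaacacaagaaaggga
Stat4: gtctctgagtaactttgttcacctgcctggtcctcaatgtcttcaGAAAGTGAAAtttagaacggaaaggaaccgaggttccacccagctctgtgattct
B2m: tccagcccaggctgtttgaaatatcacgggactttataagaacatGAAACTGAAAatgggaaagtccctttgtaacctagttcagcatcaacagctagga
Cxcl10: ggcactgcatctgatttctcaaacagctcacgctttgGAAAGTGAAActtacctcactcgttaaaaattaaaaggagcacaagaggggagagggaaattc
The Oas3, Stat4, B2m and Cxcl10 matches read GAAA in the direction of the gene, and that of Gbp3 reads TTTC because it lies on the other strand.

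Antigen presentation to CD8 T cells rose at the level of the class I heavy chains, their light chain and the peptide supply. H2-K1 had 1541, 1834 and 1804 CPM in IFN-alpha-pMC tumours, against 433, 824 and 578 CPM in control tumours (log2 fold change 1.5, SE 0.23, adjusted p = 0.000292), and H2-D1 had 2150, 2617 and 2304 CPM in IFN-alpha-pMC tumours, against 723, 1107 and 1085 CPM in control tumours (log2 fold change 1.28, SE 0.19, adjusted p = 0.000194). B2m, the shared light chain, had 7587, 7550 and 6856 CPM in IFN-alpha-pMC tumours, against 2539, 4521 and 3841 CPM in control tumours (log2 fold change 1.01, SE 0.23, adjusted p = 0.00744). The groups were apart for all 3 genes and control library 1 was the lowest. Class I genes are near copies of one another and pairs aligning to several places were not counted, so their levels may be understated. Of 13 tested genes of the immunoproteasome and peptide loading 7 rose and none fell. The number that rose was 3 without control library 1 and 11 without both libraries numbered 3. Over all genes tested these fits called 6.45 and 23.1% higher, in that order. Tap1, a subunit of the peptide pump of the endoplasmic reticulum, had 244, 287 and 306 CPM in IFN-alpha-pMC tumours, against 105, 153 and 142 CPM in control tumours (log2 fold change 1.07, SE 0.17, adjusted p = 0.000494). Tapbpl, a peptide editor also called TAPBPR, averaged 112 ± 11.6 CPM in IFN-alpha-pMC and 41.0 ± 11.5 CPM in control tumours (log2 fold change 1.45, SE 0.18, adjusted p = 6.14e-05). Psmb8, a catalytic subunit of the immunoproteasome, had 69.1, 105 and 62.3 CPM in IFN-alpha-pMC tumours, against 13.6, 15.9 and 42.0 CPM in control tumours (log2 fold change 1.73, SE 0.35, adjusted p = 0.00295). The B2m call was lost without control library 1 (adjusted p = 0.066) and with an offset for length and GC content of the transcript (0.328).

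MHC class II genes, which present peptides to CD4 T cells, rose in 9 of 14 tested members and fell in none, with a median log2 fold change of 1.35. Cd74, the invariant chain, had 780.3, 1069 and 1098 CPM in IFN-alpha-pMC tumours, against 209, 432 and 361 CPM in control tumours (log2 fold change 1.56, SE 0.28, adjusted p = 0.00108). Ciita, the master regulator of the class II genes, had 22.9, 23.7 and 36.1 CPM in IFN-alpha-pMC tumours, against 7.18, 15.3 and 9.25 CPM in control tumours (log2 fold change 1.38, SE 0.27, adjusted p = 0.00206). Ctss, the protease that trims the invariant chain, had 568, 591 and 589.6 CPM in IFN-alpha-pMC tumours, against 89.0, 141 and 198 CPM in control tumours (log2 fold change 2.03, SE 0.24, adjusted p = 3.92e-05). All 3 IFN-alpha-pMC libraries exceeded all 3 control libraries for each, and for Ctss they lay within 24 CPM of each other. H2-DMa, which loads peptides on class II molecules, averaged 85.4 ± 7.65 CPM in IFN-alpha-pMC and 22.9 ± 9.59 CPM in control tumours (log2 fold change 1.90, SE 0.24, adjusted p = 6.80e-05).

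Chemokines that call T cells rose in 7 of 9 tested members. Cxcl10, a ligand of Cxcr3, had 559, 495 and 444 CPM in IFN-alpha-pMC tumours, against 137, 110.1 and 164 CPM in control tumours (log2 fold change 1.87, SE 0.24, adjusted p = 7.17e-05). Cxcl9, another ligand of the same receptor, had 311, 271 and 235 CPM in IFN-alpha-pMC tumours, against 73.0, 96.6 and 135 CPM in control tumours (log2 fold change 1.42, SE 0.23, adjusted p = 0.000549). The third, Cxcl11, averaged 5.68 ± 1.51 CPM in IFN-alpha-pMC and 1.06 ± 0.332 CPM in control tumours (log2 fold change 2.43, SE 0.36, adjusted p = 0.000205). In C57BL/6 mice Cxcl11 carries a frameshift, so this is a statement on RNA. Ccl5, which draws T cells and monocytes, averaged 107 ± 18.4 CPM in IFN-alpha-pMC and 21.7 ± 5.46 CPM in control tumours (log2 fold change 2.31). Ccl4, a related chemokine, averaged 27.2 ± 4.47 CPM in IFN-alpha-pMC and 2.94 ± 0.956 CPM in control tumours (log2 fold change 3.21). Groups did not overlap for any of these 5 chemokines.

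Of 10 chemokines for monocytes and neutrophils 3 rose. The count of genes that rose was 5 without IFN-alpha-pMC library 3, 6 without control library 3 and 7 without both libraries numbered 3. Over all genes tested these fits called 8.47, 13 and 23.1% higher, in that order. Ccl2 and Ccl7, which bring Ccr2+ monocytes into tissue, were among the 3 that rose. Ccl2 had 94.7, 119 and 56.6 CPM in IFN-alpha-pMC tumours, against 9.78, 5.19 and 20.3 CPM in control tumours (log2 fold change 2.95, SE 0.40, adjusted p = 0.000104). Ccl7 had 114, 138 and 60.4 CPM in IFN-alpha-pMC tumours, against 8.37, 5.23 and 18.3 CPM in control tumours (log2 fold change 3.30, SE 0.40, adjusted p = 4.45e-05). In both, library 3 was the lowest of the IFN-alpha-pMC libraries and the highest of the controls. Of 13 chemokine receptors 7 rose. The count that rose was 4 without IFN-alpha-pMC library 2 or without control library 1. Ccr2 had 77.7, 83.2 and 59.3 CPM in IFN-alpha-pMC tumours, against 8.82, 13.3 and 25.2 CPM in control tumours (log2 fold change 2.22, SE 0.33, adjusted p = 0.000186). Cxcr6, found on tissue-resident T cells, averaged 26.3 ± 8.31 CPM in IFN-alpha-pMC and 3.33 ± 2.71 CPM in control tumours (log2 fold change 3.01, SE 0.59, adjusted p = 0.00224). Cxcr3 averaged 9.70 ± 2.37 CPM in IFN-alpha-pMC and 4.77 ± 0.789 CPM in control tumours (log2 fold change 1.02, SE 0.26, adjusted p = 0.0167), and Ccr7, which guides cells to lymph nodes, 2.73 ± 0.142 CPM in IFN-alpha-pMC and 1.06 ± 0.454 CPM in control tumours (log2 fold change 1.38, SE 0.37, adjusted p = 0.0207). Xcr1, of cross-presenting dendritic cells, averaged 5.07 ± 1.0 CPM in IFN-alpha-pMC and 3.09 ± 1.51 CPM in control tumours and was not called (adjusted p = 0.177; without both libraries numbered 3, log2 fold change 1.06 and adjusted p = 0.0269). The Cxcr3 call was lost without IFN-alpha-pMC library 2 (adjusted p = 0.0695), IFN-alpha-pMC library 3 (0.063) or control library 1 (0.124), and that of Ccr7 without IFN-alpha-pMC library 2 (0.0526), control library 1 (0.143) or control library 2 (0.0725).

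Of 13 genes of lymphocyte homing and adhesion 7 rose and none fell. Without both libraries numbered 3, 8 of them were called higher and 1 lower, against 23.1% and 20.6% of all genes tested. Ly6a, also called Sca-1 and induced by interferons on many cells, had 185, 232 and 174 CPM in IFN-alpha-pMC tumours, against 25.5, 34.5 and 49.5 CPM in control tumours (log2 fold change 2.44, SE 0.20, adjusted p = 2.80e-06). Icam1, a ligand of leukocyte integrins, averaged 20.0 ± 3.97 CPM in IFN-alpha-pMC and 5.43 ± 0.883 CPM in control tumours (log2 fold change 1.88, SE 0.24, adjusted p = 6.26e-05). Vcam1, a ligand of another leukocyte integrin on endothelium, had 16.9, 21.7 and 22.2 CPM in IFN-alpha-pMC tumours, against 16, 23.1 and 21.7 CPM in control tumours, with full overlap (adjusted p = 0.999). Selp, the P-selectin of activated endothelium and platelets, averaged 1.32 ± 0.999 CPM in IFN-alpha-pMC and 0.432 ± 0.356 CPM in control tumours (adjusted p = 0.216).

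T cell receptor signalling rose in 19 of 21 tested members and fell in none, with a median log2 fold change of 2.82. Cd3g had 28, 37.0 and 26.1 CPM in IFN-alpha-pMC tumours, against 1.97, 3.18 and 3.25 CPM in control tumours (log2 fold change 3.44, SE 0.30, adjusted p = 2.96e-06), and Cd3e had 12.6, 17.8 and 14.2 CPM in IFN-alpha-pMC tumours, against 0.869, 3.01 and 1.81 CPM in control tumours (log2 fold change 2.96, SE 0.40, adjusted p = 9.03e-05); both encode chains of the receptor complex. Lck, the kinase that starts the signal, had 38.0, 46.2 and 27.2 CPM in IFN-alpha-pMC tumours, against 4.25, 5.93 and 10.8 CPM in control tumours (log2 fold change 2.42, SE 0.32, adjusted p = 7.43e-05). The lowest IFN-alpha-pMC library was above the highest control library for all 3. Zap70, the next kinase, averaged 9.43 ± 1.35 CPM in IFN-alpha-pMC and 1.39 ± 0.798 CPM in control tumours. Its log2 fold change was 2.74. Cd2, an adhesion receptor, averaged 24.8 ± 5.65 CPM in IFN-alpha-pMC and 2.18 ± 0.701 CPM in control tumours (log2 fold change 3.52). Themis, needed for thymic T cell selection, averaged 12.3 ± 2.48 CPM in IFN-alpha-pMC and 0.728 ± 0.284 CPM in control tumours (log2 fold change 4.07). When the muscle score was a covariate 18 of the 21 were called higher.

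Of 18 genes of T cell lineage and state 11 rose. Cd8a, the co-receptor of killer T cells, had 26.3, 31.6 and 31.6 CPM in IFN-alpha-pMC tumours, against 2.06, 5.89 and 5.0 CPM in control tumours (log2 fold change 2.79, SE 0.39, adjusted p = 0.000112). Cd4, the co-receptor of helper T cells and also found on some myeloid cells, had 9.21, 13.6 and 11.5 CPM in IFN-alpha-pMC tumours, against 2.29, 4.80 and 2.81 CPM in control tumours (log2 fold change 1.79, SE 0.35, adjusted p = 0.00255). Tbx21, the factor that sets the interferon gamma programme in T and NK cells, had 5.35, 8.14 and 8.57 CPM in IFN-alpha-pMC tumours, against 0.366, 1.05 and 0.688 CPM in control tumours (log2 fold change 3.38, SE 0.34, adjusted p = 1.10e-05). None of the 3 overlapped between groups. Foxp3, the factor of regulatory T cells, had 1.12, 1.02 and 2.41 CPM in IFN-alpha-pMC tumours, against 0.366, 1.40 and 0.313 CPM in control tumours, with overlapping groups (adjusted p = 0.235). Foxp3 was low in every library, and without control library 2 its log2 fold change was 2.12 with an adjusted p of 0.0409.

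The granule killing machinery rose in 14 of 18 tested members and fell in none, with a median log2 fold change of 2.82. Gzmb had 151, 186 and 139 CPM in IFN-alpha-pMC tumours, against 1.46, 2.01 and 6.38 CPM in control tumours (log2 fold change 5.63, SE 0.46, adjusted p = 2.76e-06). Nkg7, a granule membrane protein, had 34.4, 49.5 and 33.6 CPM in IFN-alpha-pMC tumours, against 1.83, 3.62 and 6.13 CPM in control tumours (log2 fold change 3.36, SE 0.38, adjusted p = 2.25e-05). Gzmk averaged 13.0 ± 2.36 CPM in IFN-alpha-pMC and 0.755 ± 0.272 CPM in control tumours (log2 fold change 4.12, SE 0.61, adjusted p = 0.000204), and the death ligand Fasl 5.36 ± 1.30 CPM in IFN-alpha-pMC and 0.753 ± 0.648 CPM in control tumours (log2 fold change 2.88, SE 0.60, adjusted p = 0.0038). For Gzmb control library 3 was the highest of the controls, and every IFN-alpha-pMC library was still more than 20 times above it. Granzyme genes are a family of near copies, so reads of one may have been left out as aligning to another.

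Of 19 NK cell receptors 15 rose and none fell, with a median log2 fold change of 2.93. Ncr1, which marks NK cells and related innate cells, had 3.72, 5.39 and 3.08 CPM in IFN-alpha-pMC tumours, against 0.457, 0.611 and 0.938 CPM in control tumours (log2 fold change 2.61, SE 0.39, adjusted p = 0.000227). Klrk1, the activating receptor NKG2D shared by NK and CD8 T cells, had 35.0, 39.9 and 28.8 CPM in IFN-alpha-pMC tumours, against 1.83, 3.62 and 8.38 CPM in control tumours (log2 fold change 2.93, SE 0.42, adjusted p = 0.000158). Klrg1, of terminally differentiated effector cells, averaged 6.51 ± 1.73 CPM in IFN-alpha-pMC and 0.375 ± 0.380 CPM in control tumours (log2 fold change 4.20, SE 0.57, adjusted p = 0.000104), and Cd244a 8.59 ± 0.923 CPM in IFN-alpha-pMC and 1.02 ± 0.527 CPM in control tumours (log2 fold change 3.10, SE 0.39, adjusted p = 5.60e-05). The groups were apart for all 4 genes. When the muscle score was a covariate 11 of the 19 passed.

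Genes that restrain T cells rose as well. Of 16 inhibitory checkpoint genes 13 rose, against 8.78% of all genes tested. In all 16 the 3 IFN-alpha-pMC libraries lay above the 3 control libraries, which held for 13.3% of all genes tested. Cd274, the ligand PD-L1 and an interferon target, had 245, 231 and 230.5 CPM in IFN-alpha-pMC tumours, against 35.9, 88.4 and 75.3 CPM in control tumours (log2 fold change 1.82, SE 0.27, adjusted p = 0.000218). Its receptor Pdcd1 had 18.8, 25.4 and 15.8 CPM in IFN-alpha-pMC tumours, against 1.46, 3.58 and 7.69 CPM in control tumours (log2 fold change 2.26, SE 0.52, adjusted p = 0.008). Lag3 had 7.96, 9.63 and 12.4 CPM in IFN-alpha-pMC tumours, against 1.83, 2.49 and 2.25 CPM in control tumours (log2 fold change 2.19, SE 0.25, adjusted p = 2.98e-05). The IFN-alpha-pMC values of Cd274 lay within 15 CPM of each other. Ctla4 averaged 7.50 ± 1.10 CPM in IFN-alpha-pMC and 1.11 ± 0.699 CPM in control tumours (log2 fold change 2.77, SE 0.55, adjusted p = 0.00269), and the second PD-1 ligand, Pdcd1lg2, 4.71 ± 2.58 CPM in IFN-alpha-pMC and 0.361 ± 0.126 CPM in control tumours (log2 fold change 3.67, SE 0.49, adjusted p = 9.35e-05). Costimulatory genes rose in 10 of 13 tested members. Those that rose numbered 4 without control library 1 and 5 when the muscle score was a covariate. Cd27 averaged 8.53 ± 1.47 CPM in IFN-alpha-pMC and 1.07 ± 0.581 CPM in control tumours (log2 fold change 3.0, SE 0.41, adjusted p = 0.000117). Tnfrsf9, the gene of 4-1BB, averaged 24.0 ± 7.93 CPM in IFN-alpha-pMC and 6.0 ± 4.23 CPM in control tumours (log2 fold change 2.02, SE 0.44, adjusted p = 0.00512). Tnfrsf4, the gene of OX40, averaged 5.49 ± 1.44 CPM in IFN-alpha-pMC and 1.42 ± 0.609 CPM in control tumours (log2 fold change 1.96, SE 0.31, adjusted p = 0.000405). When the muscle score was a covariate the adjusted p was 0.0556 for Ctla4 and 0.0501 for Tnfrsf9.

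Of 16 cytokine genes tested 10 rose and none fell. The number that rose was 6 without control library 1 or when the muscle score was a covariate. Ifng, interferon gamma, had 8.19, 6.58 and 6.52 CPM in IFN-alpha-pMC tumours, against 0.320, 1.26 and 0.438 CPM in control tumours (log2 fold change 3.35, SE 0.40, adjusted p = 3.94e-05). Tnf had 10, 7.36 and 7.98 CPM in IFN-alpha-pMC tumours, against 0.686, 0.916 and 1.13 CPM in control tumours (log2 fold change 3.22, SE 0.35, adjusted p = 1.78e-05). Il1rn, the natural antagonist of interleukin 1, had 25.1, 25 and 27.1 CPM in IFN-alpha-pMC tumours, against 1.6, 1.40 and 4.38 CPM in control tumours (log2 fold change 3.42, SE 0.40, adjusted p = 2.81e-05). All were at low or very low levels in each control library. Il18bp, an interferon gamma target that neutralises interleukin 18, had 148, 144 and 153 CPM in IFN-alpha-pMC tumours, against 24.6, 46.3 and 39.5 CPM in control tumours (log2 fold change 2.01, SE 0.21, adjusted p = 1.22e-05). Il10, an anti-inflammatory cytokine, averaged 2.45 ± 0.242 CPM in IFN-alpha-pMC and 0.293 ± 0.244 CPM in control tumours (log2 fold change 3.13, SE 0.60, adjusted p = 0.00201), with an adjusted p of 0.0917 when the muscle score was a covariate. Il15, which sustains NK and memory CD8 T cells, averaged 7.37 ± 2.82 CPM in IFN-alpha-pMC and 3.60 ± 1.56 CPM in control tumours (adjusted p = 0.075; without both libraries numbered 3, log2 fold change 1.71 and adjusted p = 0.000986). Il12b, a subunit of interleukins 12 and 23, averaged 1.37 ± 0.264 CPM in IFN-alpha-pMC and 0.750 ± 0.434 CPM in control tumours (adjusted p = 0.27). Il1b averaged 4.15 ± 3.77 CPM in IFN-alpha-pMC and 1.6 ± 1.5 CPM in control tumours (adjusted p = 0.196; without both libraries numbered 3, log2 fold change 2.83 and adjusted p = 0.00275), with most of its level in IFN-alpha-pMC tumours in library 2.

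Cytokine receptors rose in 14 of 16 tested members. Il2rb, the signalling chain of interleukin 2 and 15 receptors, had 42.1, 60.9 and 76.7 CPM in IFN-alpha-pMC tumours, against 4.30, 13.3 and 7.44 CPM in control tumours (log2 fold change 2.84, SE 0.35, adjusted p = 4.69e-05). Il21r averaged 14 ± 2.77 CPM in IFN-alpha-pMC and 5.09 ± 2.11 CPM in control tumours (log2 fold change 1.46, SE 0.27, adjusted p = 0.00144) and Csf3r, the receptor of the neutrophil growth factor, 15.1 ± 6.32 CPM in IFN-alpha-pMC and 5.18 ± 0.928 CPM in control tumours (log2 fold change 1.54, SE 0.28, adjusted p = 0.00129). Groups were apart for all 3 genes.

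The myeloid genes moved unevenly: 13 of 24 monocyte and macrophage markers rose and none fell. Ly6c2, which marks inflammatory monocytes and some T cells, had 177, 186 and 167 CPM in IFN-alpha-pMC tumours, against 5.99, 9.25 and 16.8 CPM in control tumours (log2 fold change 4.06, SE 0.31, adjusted p = 1.54e-06). Plac8, also of such monocytes, had 109.9, 172 and 70.8 CPM in IFN-alpha-pMC tumours, against 9.6, 3.71 and 28.6 CPM in control tumours (log2 fold change 3.09, SE 0.57, adjusted p = 0.00155). Fcgr1, the high-affinity receptor for IgG and an interferon target, had 119, 124 and 92.6 CPM in IFN-alpha-pMC tumours, against 16, 17.7 and 39.4 CPM in control tumours (log2 fold change 2.20, SE 0.27, adjusted p = 4.45e-05). Groups were apart for all 3, with control library 3 the highest of the controls. Slfn4, an interferon-inducible gene of monocytes, averaged 20.9 ± 11.6 CPM in IFN-alpha-pMC and 1.26 ± 0.0846 CPM in control tumours (log2 fold change 4.04). Chil3, a chitinase-like protein of monocytes and macrophages, averaged 14.9 ± 10.7 CPM in IFN-alpha-pMC and 0.999 ± 0.769 CPM in control tumours (log2 fold change 3.94). Mrc1, the mannose receptor of resident and alternatively activated macrophages, had 23.8, 49.9 and 41.4 CPM in IFN-alpha-pMC tumours, against 26.8, 36.5 and 27.6 CPM in control tumours (adjusted p = 0.386). Cd163, a scavenger receptor of the same cells, averaged 0.755 ± 0.711 CPM in IFN-alpha-pMC and 0.733 ± 0.202 CPM in control tumours (adjusted p = 0.978). Lyz2, lysozyme, had 398, 391 and 204 CPM in IFN-alpha-pMC tumours, against 262, 167 and 823 CPM in control tumours (adjusted p = 0.777), and control library 3 was the highest of all 6. Both groups overlapped for these 3.

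Fc gamma receptors and their adaptors rose in 9 of 10 tested members. Fcgr4 had 147, 140 and 122 CPM in IFN-alpha-pMC tumours, against 19.2, 24.9 and 66.4 CPM in control tumours (log2 fold change 1.89, SE 0.36, adjusted p = 0.00181). Complement genes rose in 11 of 15. C1qa, of the first component, had 335, 349.8 and 312 CPM in IFN-alpha-pMC tumours, against 82.9, 102 and 180.5 CPM in control tumours (log2 fold change 1.45, SE 0.23, adjusted p = 0.000476). C3, the central component, had 40.6, 62.4 and 103 CPM in IFN-alpha-pMC tumours, against 17.6, 24.7 and 16.4 CPM in control tumours (log2 fold change 1.81, SE 0.36, adjusted p = 0.0024). The receptor gene C3ar1 averaged 85.2 ± 12 CPM in IFN-alpha-pMC and 22.4 ± 4.23 CPM in control tumours (log2 fold change 1.93, SE 0.20, adjusted p = 1.10e-05). Cfb, an interferon gamma target, was at 0.140, 0.239 and 0.237 CPM in IFN-alpha-pMC tumours, against 0.137, 0.174 and 0.0625 CPM in control tumours and was not tested. Of 9 granzyme inhibitors and interferon-linked serpins 6 rose. Serpina3g averaged 112 ± 15.6 CPM in IFN-alpha-pMC and 21.9 ± 10.6 CPM in control tumours (log2 fold change 2.36), and Serpina3f averaged 24.9 ± 1.48 CPM in IFN-alpha-pMC and 7.18 ± 1.55 CPM in control tumours (log2 fold change 1.79). Serping1, the C1 inhibitor, averaged 86.5 ± 8.89 CPM in IFN-alpha-pMC and 21.4 ± 5.46 CPM in control tumours (log2 fold change 2.02).

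Enzymes that consume arginine or tryptophan or make itaconate rose in 8 of 10 tested members. Arg1, arginase of alternatively activated and suppressive myeloid cells, had 67.3, 120.5 and 17.8 CPM in IFN-alpha-pMC tumours, against 0.640, 0.0872 and 5.32 CPM in control tumours (log2 fold change 5.17, SE 0.93, adjusted p = 0.00112). Nos2, the inducible nitric oxide synthase that uses the same substrate, had 4.84, 4.97 and 8.02 CPM in IFN-alpha-pMC tumours, against 0.914, 1.0 and 0.563 CPM in control tumours (log2 fold change 2.82, SE 0.36, adjusted p = 7.03e-05). Acod1, which makes itaconate, had 19.4, 16.9 and 19.1 CPM in IFN-alpha-pMC tumours, against 1.05, 2.01 and 3.81 CPM in control tumours (log2 fold change 3.03, SE 0.43, adjusted p = 0.000158). The Arg1 values spanned a wide range in both groups, with library 3 lowest among IFN-alpha-pMC and highest among control tumours. Acod1 was also highest in library 3 among control tumours, and Nos2 was highest in library 3 among IFN-alpha-pMC tumours. Without both right libraries numbered 3 the Arg1 log2 fold change was 8.01. Ido1, which degrades tryptophan, had 49 counts over the IFN-alpha-pMC libraries and 2 over the control libraries (log2 fold change 4.33, SE 0.96, adjusted p = 0.00809). The ratio of Ido1 per library total carries a 95% binomial interval of 6.03 to 195, and its call was lost without control library 1 (adjusted p = 0.0522).

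Of 18 neutrophil genes 7 passed the filter on low counts, and 4 of these rose. The count of genes that rose was 1 without control library 1, without control library 2 or when the muscle score was a covariate and 2 without IFN-alpha-pMC library 2. S100a8, an abundant neutrophil protein, had 0.186, 5.45 and 0.198 CPM in IFN-alpha-pMC tumours, against 0.503, 0.218 and 0.563 CPM in control tumours (adjusted p = 0.193; without both libraries numbered 3, log2 fold change 2.92 and adjusted p = 0.034). Its partner S100a9 had 0.651, 7.84 and 0.237 CPM in IFN-alpha-pMC tumours, against 0.549, 0.0872 and 0.438 CPM in control tumours (adjusted p = 0.101; without both libraries numbered 3, log2 fold change 3.71 and adjusted p = 0.0186). IFN-alpha-pMC library 2 was the single high library for both. Of 16 dendritic cell genes 2 rose. The count that rose was 1 without IFN-alpha-pMC library 2, without control library 1 or without control library 2. It was 6 without control library 3 or without both libraries numbered 3. None was called lower over all 6 libraries, and the number was 2 without both libraries numbered 3. Of all genes tested, 8.78% rose over all libraries and 13% without control library 3. Without both libraries numbered 3, 23.1% of all genes rose and 20.6% fell. Naaa averaged 54.1 ± 5.55 CPM in IFN-alpha-pMC and 23.0 ± 4.13 CPM in control tumours (log2 fold change 1.24, SE 0.18, adjusted p = 0.000197), and Batf3, needed for cross-presenting dendritic cells, 3.34 ± 0.814 CPM in IFN-alpha-pMC and 1.40 ± 0.736 CPM in control tumours (adjusted p = 0.067; without both libraries numbered 3, log2 fold change 1.88 and adjusted p = 0.00569). Of 10 B and plasma cell genes 6 rose. The number that rose was 2 without control library 1 and 3 without IFN-alpha-pMC library 1. Igkc, the kappa light chain, had 36.9, 18.1 and 33.9 CPM in IFN-alpha-pMC tumours, against 4.43, 11.1 and 6.13 CPM in control tumours (log2 fold change 2.03, SE 0.39, adjusted p = 0.00193). Ighm averaged 29.2 ± 1.01 CPM in IFN-alpha-pMC and 17.3 ± 5.90 CPM in control tumours (log2 fold change 0.75, SE 0.23, adjusted p = 0.0399), a call that was lost without any single one of 4 libraries, IFN-alpha-pMC library 1 (0.101), 2 (0.0851) or 3 (0.0947) or control library 1 (0.279), and after the offset for length and GC content (0.178).

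Matrix proteases and their inhibitors rose in 10 of 19 tested members and fell in 1. The count of genes that rose was 6 without control library 1, without control library 2 or when the muscle score was a covariate. Adam8, a metalloprotease of activated leukocytes, had 37.9, 39.2 and 44.8 CPM in IFN-alpha-pMC tumours, against 3.70, 4.14 and 4.94 CPM in control tumours (log2 fold change 3.26, SE 0.25, adjusted p = 1.54e-06). Plau, the urokinase gene, had 41.0, 40.9 and 39.6 CPM in IFN-alpha-pMC tumours, against 11, 8.90 and 12.2 CPM in control tumours (log2 fold change 1.92, SE 0.18, adjusted p = 5.10e-06). Mmp13, a collagenase, had 15.0, 16.3 and 11.3 CPM in IFN-alpha-pMC tumours, against 1.42, 0.872 and 3.25 CPM in control tumours (log2 fold change 2.97, SE 0.35, adjusted p = 3.44e-05). Groups were far apart for all 3. Ctsb, a lysosomal protease, had 3614, 3936 and 2904 CPM in IFN-alpha-pMC tumours, against 1445, 1627 and 2641 CPM in control tumours (log2 fold change 0.87, SE 0.20, adjusted p = 0.00831), with control library 3 close to IFN-alpha-pMC library 3. The Ctsb call was lost without control library 1 (adjusted p = 0.0618) or control library 2 (0.0518). Mmp14, a membrane metalloprotease, had 150.1, 182 and 279 CPM in IFN-alpha-pMC tumours, against 328, 298 and 170.5 CPM in control tumours (adjusted p = 0.412; without both libraries numbered 3, log2 fold change -0.92 and adjusted p = 0.00348). The number called lower was 0 without IFN-alpha-pMC library 1, without IFN-alpha-pMC library 2, without control library 1, without control library 2 or when the muscle score was a covariate. It was 2 without IFN-alpha-pMC library 3, where 12.2% of all genes tested fell, or without both libraries numbered 3, where 20.6% fell. Adamts1 was the member that fell (log2 fold change -0.96, SE 0.29, adjusted p = 0.0448), and that call was lost in 4 of the 6 fits with 1 library left out, without IFN-alpha-pMC library 1 (0.193) or 2 (0.211) or control library 1 (0.112) or 2 (0.216).

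Genes of cell death rose in part. Of 14 genes of the inflammasome and gasdermins 4 rose. Those that rose numbered 2 without control library 1, 7 without both libraries numbered 3 and 9 without control library 3. Over all genes tested these fits called 6.45, 23.1 and 13% higher, in that order. Casp1, which cleaves interleukin 1 beta and gasdermin D, had 37.5, 34.2 and 27.3 CPM in IFN-alpha-pMC tumours, against 4.71, 5.93 and 12.5 CPM in control tumours (log2 fold change 2.11, SE 0.32, adjusted p = 0.000266). Gsdmd, gasdermin D itself, had 37.1, 41.0 and 32.1 CPM in IFN-alpha-pMC tumours, against 10.7, 13.0 and 14.7 CPM in control tumours (log2 fold change 1.52, SE 0.18, adjusted p = 3.97e-05). Casp4, which senses cytosolic lipopolysaccharide, averaged 50 ± 17.2 CPM in IFN-alpha-pMC and 20.3 ± 12 CPM in control tumours (adjusted p = 0.0522; without both libraries numbered 3, log2 fold change 2.15 and adjusted p = 0.000503). Of 15 genes of death receptors and extrinsic apoptosis 7 rose. The number that rose was 3 without control library 1. Ripk3, the kinase of necroptosis, had 6.33, 6.34 and 6.0 CPM in IFN-alpha-pMC tumours, against 1.51, 1.48 and 1.56 CPM in control tumours (log2 fold change 2.03, SE 0.21, adjusted p = 1.10e-05). Its values were nearly the same within each group. Its substrate Mlkl averaged 254 ± 26.7 CPM in IFN-alpha-pMC and 163 ± 32.4 CPM in control tumours (log2 fold change 0.64, SE 0.15, adjusted p = 0.0123). Fas, the receptor of Fasl, averaged 3.94 ± 0.922 CPM in IFN-alpha-pMC and 0.949 ± 0.767 CPM in control tumours (log2 fold change 2.1, SE 0.58, adjusted p = 0.0258). Without control library 1 the calls of Mlkl and Fas were lost (adjusted p = 0.107 and 0.127). Mlkl also lost its call without IFN-alpha-pMC library 1 (0.0602) or control library 2 (0.0633), and Fas without IFN-alpha-pMC library 1 (0.0834) or 2 (0.064) or control library 2 (0.126).

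Stress-linked genes gave a mixed picture. Of 16 p53 targets 6 rose and none fell. Without both libraries numbered 3, 2 fell, against 20.6% of all genes tested. Cdkn1a, the cell cycle inhibitor p21, had 140.3, 135 and 128 CPM in IFN-alpha-pMC tumours, against 77.0, 55.3 and 61.5 CPM in control tumours (log2 fold change 1.06, SE 0.21, adjusted p = 0.00292). Btg2, an antiproliferative gene, averaged 15.6 ± 3.41 CPM in IFN-alpha-pMC and 5.17 ± 1.10 CPM in control tumours (log2 fold change 1.59). Pmaip1, the death gene Noxa, averaged 4.0 ± 0.509 CPM in IFN-alpha-pMC and 1.01 ± 0.371 CPM in control tumours (log2 fold change 1.99). Mdm2, the ubiquitin ligase of p53, averaged 112 ± 30.4 CPM in IFN-alpha-pMC and 80.3 ± 16.9 CPM in control tumours (adjusted p = 0.135; without both libraries numbered 3, log2 fold change 0.85 and adjusted p = 0.000634). The Cdkn1a call was lost when the muscle score was a covariate (adjusted p = 0.0962). Of 20 immediate early genes, which also respond to tissue handling, 8 rose. The count of genes that rose was 4 without control library 2 and 5 without IFN-alpha-pMC library 1, without IFN-alpha-pMC library 2 or when the muscle score was a covariate. Atf3 had 60.2, 54.5 and 42.5 CPM in IFN-alpha-pMC tumours, against 8.46, 11.1 and 17.6 CPM in control tumours (log2 fold change 2.08, SE 0.26, adjusted p = 5.64e-05). Junb averaged 54.0 ± 4.99 CPM in IFN-alpha-pMC and 23.8 ± 2.37 CPM in control tumours (log2 fold change 1.18, SE 0.17, adjusted p = 0.000151), and Fos averaged 27.9 ± 9.42 CPM in IFN-alpha-pMC and 17.7 ± 4.17 CPM in control tumours (adjusted p = 0.376). Of 17 genes of the unfolded protein and ATF4 responses 1 rose, Ddit3 (log2 fold change 1.18, SE 0.19, adjusted p = 0.000522). The number of these called higher was 2 without control library 3 and 6 without both libraries numbered 3. None was called lower over all 6 libraries, and the number was 2 without both libraries numbered 3 and 3 without control library 2. Of all genes tested, 8.78% rose over all libraries and 13% without control library 3. Without both libraries numbered 3, 23.1% of all genes rose and 20.6% fell, and 1.19% fell without control library 2. Hspa5, the main chaperone of the endoplasmic reticulum, averaged 1234 ± 219 CPM in IFN-alpha-pMC and 1161 ± 432 CPM in control tumours (adjusted p = 0.872; without both libraries numbered 3, log2 fold change 0.57 and adjusted p = 0.0176), and the ATF4 target Trib3 9.98 ± 1.59 CPM in IFN-alpha-pMC and 11 ± 3.15 CPM in control tumours (adjusted p = 0.8). Of 20 hypoxia and glycolysis genes 3 rose, with Ndrg1 having the smallest p (log2 fold change 1.0, SE 0.24, adjusted p = 0.00959). The number that rose was 1 without control library 1 or without control library 2, 10 without control library 3 and 11 without both libraries numbered 3. Over all genes tested these fits called 6.45, 6.77, 13 and 23.1% higher, in that order. The Ndrg1 call was lost without control library 1 (adjusted p = 0.0848). Vegfa, the growth factor of vessels, averaged 48.5 ± 4.84 CPM in IFN-alpha-pMC and 43.6 ± 5.03 CPM in control tumours (adjusted p = 0.706). Ldha, lactate dehydrogenase, averaged 1659 ± 432 CPM in IFN-alpha-pMC and 1306 ± 701 CPM in control tumours (adjusted p = 0.514; without both libraries numbered 3, log2 fold change 1.04 and adjusted p = 0.000446), and Car9, a carbonic anhydrase of hypoxic cells, 34.9 ± 2.30 CPM in IFN-alpha-pMC and 18.9 ± 9.99 CPM in control tumours (adjusted p = 0.0944; without both libraries numbered 3, log2 fold change 1.35 and adjusted p = 0.00304).

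Few melanocyte genes passed. Of 21 melanocyte lineage genes 1 rose and 1 fell, with a median log2 fold change of 0.02. The number of melanocyte genes called higher was 0 without IFN-alpha-pMC library 1, without IFN-alpha-pMC library 2, without control library 1, without control library 2 or when the muscle score was a covariate, 3 without control library 3 and 5 without both libraries numbered 3. The number called lower was 0 without IFN-alpha-pMC library 1 or when the muscle score was a covariate. It was 3 without IFN-alpha-pMC library 3, without control library 3 or without both libraries numbered 3. Of all genes tested, 23.1% rose and 20.6% fell without both libraries numbered 3. Dct, a melanin synthesis enzyme, had 11330, 11070 and 7496 CPM in IFN-alpha-pMC tumours, against 9568, 8662 and 16930 CPM in control tumours (adjusted p = 0.658). Mlana had 2608, 2557 and 1328 CPM in IFN-alpha-pMC tumours, against 1468, 1080 and 2953 CPM in control tumours (adjusted p = 0.759; without both libraries numbered 3, log2 fold change 1.02 and adjusted p = 0.0113). In both, control library 3 was the highest and IFN-alpha-pMC library 3 the lowest of its group. Tyr, tyrosinase, averaged 2064 ± 533 CPM in IFN-alpha-pMC and 2089 ± 841 CPM in control tumours (adjusted p = 0.983), and Mitf, the lineage transcription factor, 1524 ± 168 CPM in IFN-alpha-pMC and 1295 ± 318 CPM in control tumours (adjusted p = 0.473; without both libraries numbered 3, log2 fold change 0.53 and adjusted p = 0.014). The member that rose was Bcl2a1b, at 1.75 ± 0.602 CPM in IFN-alpha-pMC and 0.462 ± 0.339 CPM in control tumours, whose relatives are also leukocyte genes (log2 fold change 1.95, SE 0.60, adjusted p = 0.0474). Ednrb, an endothelin receptor of melanoblasts and endothelium, fell (log2 fold change -1.53, SE 0.36, adjusted p = 0.0105). The Bcl2a1b call was lost without IFN-alpha-pMC library 1 (adjusted p = 0.131) or 2 (0.159) or control library 1 (0.216) or 2 (0.142), and that of Ednrb without IFN-alpha-pMC library 1 (0.0552).

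None of 30 cell cycle genes, 77 cytosolic ribosomal protein genes or 48 oxidative phosphorylation genes passed in this test, and these counts rest on the libraries numbered 3. Mki67, the proliferation marker, had 75.5, 72.7 and 247 CPM in IFN-alpha-pMC tumours, against 420.3, 397 and 141 CPM in control tumours (adjusted p = 0.0603). Libraries 1 and 2 of IFN-alpha-pMC tumours were far below those of control tumours, and library 3 of each group stood between. Without both libraries numbered 3 the Mki67 log2 fold change was -2.46 (adjusted p = 6.82e-07), and 5 of the 30 cell cycle genes fell and none rose in that fit (3 fell without IFN-alpha-pMC library 3 alone and 2 without control library 3 alone), where 20.6% of all genes fell. Top2a, a topoisomerase of dividing cells, averaged 251 ± 49.2 CPM in IFN-alpha-pMC and 324 ± 27.1 CPM in control tumours (adjusted p = 0.262; without both libraries numbered 3, log2 fold change -0.59 and adjusted p = 0.0313), and Pcna, the replication clamp, 289 ± 69.5 CPM in IFN-alpha-pMC and 304 ± 144 CPM in control tumours (adjusted p = 0.924). Rpl3, a ribosomal protein, had 1125, 1147 and 609 CPM in IFN-alpha-pMC tumours, against 693, 511 and 1253 CPM in control tumours (adjusted p = 0.747; without both libraries numbered 3, log2 fold change 0.92 and adjusted p = 0.0152), and Rps6 averaged 707 ± 227 CPM in IFN-alpha-pMC and 591 ± 323 CPM in control tumours (adjusted p = 0.693; without both libraries numbered 3, log2 fold change 1.04 and adjusted p = 0.00137). Without both libraries numbered 3, 46 of the 77 ribosomal protein genes rose, with a median log2 fold change of 0.89, and 12 of the 48 oxidative phosphorylation genes, where 23.1% of all genes rose. Over all 6 libraries Ndufa4, of the respiratory chain, averaged 597 ± 195 CPM in IFN-alpha-pMC and 706 ± 396 CPM in control tumours (adjusted p = 0.793), and Cox4i1, of cytochrome c oxidase, 731 ± 249 CPM in IFN-alpha-pMC and 895 ± 589.5 CPM in control tumours (adjusted p = 0.768). The number of ribosomal protein genes called higher was 7 without control library 3 and 46 without both libraries numbered 3. With the offset for length and GC content, which called 1602 genes higher (10.8%) and 790 lower (5.32%), no ribosomal protein gene passed, and 4 of the 30 cell cycle genes fell. Mki67 had a log2 fold change of -0.94 with that offset (adjusted p = 0.0184), and its adjusted p was 0.0237 by DESeq2 and 0.0287 with no filter on low counts.

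The genes that fell included several of sterol synthesis. Of 18 genes of cholesterol synthesis and sterol regulation 7 fell and 1 rose, against 2.01% of all genes that fell, with a median log2 fold change of -0.54. Sqle, squalene epoxidase, had 113, 97.5 and 115 CPM in IFN-alpha-pMC tumours, against 187, 189 and 157 CPM in control tumours (log2 fold change -0.71, SE 0.18, adjusted p = 0.0172). Lss, the next enzyme, had 31.3, 29.1 and 39.6 CPM in IFN-alpha-pMC tumours, against 71.0, 63.9 and 47.7 CPM in control tumours (log2 fold change -0.87, SE 0.17, adjusted p = 0.00213). All 3 IFN-alpha-pMC libraries were below all 3 control libraries for both. Srebf2, the transcription factor of the pathway, averaged 113 ± 36.9 CPM in IFN-alpha-pMC and 204 ± 63.5 CPM in control tumours (log2 fold change -0.85, SE 0.24, adjusted p = 0.0287). The member that rose was Abcg1, a cholesterol exporter of macrophages, which had 26.2, 27.4 and 48.4 CPM in IFN-alpha-pMC tumours, against 4.30, 9.47 and 5.75 CPM in control tumours (log2 fold change 2.38, SE 0.41, adjusted p = 0.000803). For Srebf2, library 3 was the highest IFN-alpha-pMC library and the lowest control library, and the groups overlapped. The number of sterol genes called lower was 1 without IFN-alpha-pMC library 2 and 4 without control library 1 or when the muscle score was a covariate.

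Fasn and Scd1, enzymes of fatty acid synthesis, also fell. Fasn, fatty acid synthase, had 62.4, 92.9 and 263 CPM in IFN-alpha-pMC tumours, against 524, 487 and 202 CPM in control tumours (log2 fold change -1.54, SE 0.41, adjusted p = 0.0203). Scd1, stearoyl-CoA desaturase, had 112, 92.2 and 159 CPM in IFN-alpha-pMC tumours, against 284, 289.6 and 169 CPM in control tumours (log2 fold change -1.03, SE 0.23, adjusted p = 0.00609). The Fasn groups overlapped through their libraries numbered 3, and those of Scd1 nearly touched. Leaving out IFN-alpha-pMC library 2 ended the calls of Sqle (adjusted p = 0.0907), Srebf2 (0.146) and Fasn (0.108) and kept those of Lss and Scd1 (adjusted p = 0.018 and 0.0433). Without control library 1 the calls of Srebf2 (0.13) and Fasn (0.0905) were lost, and without IFN-alpha-pMC library 1 those of Srebf2 (0.138) and Fasn (0.0817). Without control library 2 those of Srebf2 (0.0766) and Fasn (0.0765) were lost. Of 7 adipocyte genes 2 rose and 1 fell, with Pparg, the adipocyte and macrophage nuclear receptor, at 9.22 ± 1.49 CPM in IFN-alpha-pMC and 3.57 ± 0.339 CPM in control tumours (log2 fold change 1.37, SE 0.22, adjusted p = 0.00049), and Scd1 the one that fell.

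Vessel genes fell in part. Of 20 endothelial genes 4 fell and none rose, with a median log2 fold change of -0.60. The number of endothelial genes called lower was 0 without IFN-alpha-pMC library 1, without IFN-alpha-pMC library 2 or without control library 1, 2 without control library 2, 9 without IFN-alpha-pMC library 3 or without control library 3 and 14 without both libraries numbered 3. Cdh5, the junction protein VE-cadherin, had 9.44, 11.1 and 23.9 CPM in IFN-alpha-pMC tumours, against 45.7, 33.9 and 15.4 CPM in control tumours (log2 fold change -1.09, SE 0.33, adjusted p = 0.0425). Vwf, von Willebrand factor, had 26.1, 31.7 and 51.1 CPM in IFN-alpha-pMC tumours, against 101, 69.0 and 42.8 CPM in control tumours (log2 fold change -0.97, SE 0.30, adjusted p = 0.0474). Pecam1, another endothelial junction protein, had 25.1, 27.8 and 36.8 CPM in IFN-alpha-pMC tumours, against 37.3, 26.7 and 19.8 CPM in control tumours (adjusted p = 0.848). Libraries numbered 3 again crossed between the groups. Ptprb, a phosphatase of vessels, averaged 5.47 ± 3.19 CPM in IFN-alpha-pMC and 12.7 ± 5.53 CPM in control tumours (log2 fold change -1.21). Aplnr, the apelin receptor, averaged 5.46 ± 1.67 CPM in IFN-alpha-pMC and 12.8 ± 7.41 CPM in control tumours (log2 fold change -1.22). Kdr, the main receptor for vascular endothelial growth factor, averaged 11.4 ± 8.26 CPM in IFN-alpha-pMC and 15.0 ± 7.37 CPM in control tumours (adjusted p = 0.63; without both libraries numbered 3, log2 fold change -1.52 and adjusted p = 3.63e-05). In the fit without both libraries numbered 3, 20.6% of all genes tested fell. The calls of Cdh5, Vwf, Ptprb and Aplnr were each lost without IFN-alpha-pMC library 1 (0.191, 0.207, 0.146 and 0.0841), IFN-alpha-pMC library 2 (0.188, 0.177, 0.157 and 0.0688) or control library 1 (0.214, 0.229, 0.144 and 0.103). After the offset for length and GC content the adjusted p of Vwf was 0.279. Without control library 2 the calls of Cdh5, Vwf and Ptprb were lost (0.109, 0.0895 and 0.113). Of 10 pericyte and smooth muscle genes 1 fell, Kcnj8, at 1.14 ± 0.308 CPM in IFN-alpha-pMC and 2.38 ± 0.627 CPM in control tumours (log2 fold change -1.05, SE 0.31, adjusted p = 0.0371), a call lost without IFN-alpha-pMC library 2 (0.137) or 3 (0.055), control library 3 (0.0715) or both libraries numbered 3 (0.13). The number of pericyte and smooth muscle genes called lower was 0 without IFN-alpha-pMC library 2, 2 without control library 3 and 5 without IFN-alpha-pMC library 3 or without both libraries numbered 3. Over all genes tested these fits called 0.53, 13.1, 12.2 and 20.6% lower, in that order. Rgs5, a pericyte marker, averaged 36.3 ± 3.83 CPM in IFN-alpha-pMC and 48.1 ± 7.60 CPM in control tumours (adjusted p = 0.166), and Pdgfrb, the growth factor receptor of pericytes, 7.60 ± 3.97 CPM in IFN-alpha-pMC and 10.1 ± 5.21 CPM in control tumours (adjusted p = 0.527; without both libraries numbered 3, log2 fold change -1.22 and adjusted p = 0.00112).

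Red cell genes fell: 5 of 7 tested members, with a median log2 fold change of -2.47. Alas2, which starts haem synthesis in red cell precursors, had 0.651, 0.718 and 0.158 CPM in IFN-alpha-pMC tumours, against 2.1, 1.57 and 4.69 CPM in control tumours (log2 fold change -2.47, SE 0.53, adjusted p = 0.00493). Hba-a2, an alpha globin, had 1.49, 2.39 and 1.03 CPM in IFN-alpha-pMC tumours, against 9.01, 5.41 and 22.3 CPM in control tumours (log2 fold change -2.91, SE 0.51, adjusted p = 0.000877). Hbb-bs, a beta globin, had 29.4, 60.7 and 13.9 CPM in IFN-alpha-pMC tumours, against 201, 45.6 and 409 CPM in control tumours (log2 fold change -2.66, SE 0.76, adjusted p = 0.0314). Control library 3 was the highest for each gene, and of these 3 only Hbb-bs overlapped between the groups. Hba-a1 averaged 6.88 ± 3.94 CPM in IFN-alpha-pMC and 27.4 ± 17.0 CPM in control tumours (log2 fold change -2.0), and Hbb-bt averaged 1.24 ± 0.920 CPM in IFN-alpha-pMC and 9.31 ± 8.17 CPM in control tumours (log2 fold change -2.94). The number of red cell genes called lower was 2 without both libraries numbered 3 or when the muscle score was a covariate and 3 without IFN-alpha-pMC library 1 or without control library 3. Over all genes tested these fits called 20.6, 0.788, 0.645 and 13.1% lower, in that order, against 2.01% over all libraries. Without both libraries numbered 3 the adjusted p was 0.1 for Hba-a1, 0.0976 for Hbb-bt and 0.137 for Hbb-bs. Hba-a1 was also lost without control library 3 (0.0525) or IFN-alpha-pMC library 2 (0.0581), Hbb-bt without IFN-alpha-pMC library 1 (0.0731), and Hbb-bs without IFN-alpha-pMC library 1 (0.116) or 3 (0.0574) or control library 1 (0.0561) or 3 (0.0708). The globin genes are near copies of each other, so their counts may be understated, and circulating blood in the tissue was not measured apart from red cell precursors.

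Among the other genes that fell most were Ndrg4, Enpp6, Msi1, Ttbk1 and Wipf3. Enpp6, a choline phosphodiesterase, had 4.65, 4.25 and 3.24 CPM in IFN-alpha-pMC tumours, against 12, 8.81 and 13.9 CPM in control tumours (log2 fold change -1.51, SE 0.22, adjusted p = 0.00016). Ndrg4 had 8.37, 7.60 and 8.49 CPM in IFN-alpha-pMC tumours, against 32.8, 27.8 and 15.9 CPM in control tumours (log2 fold change -1.65, SE 0.32, adjusted p = 0.00238). Enpp6 and Ndrg4 did not overlap between the groups, which was part of the rule that picked them. Msi1, an RNA-binding protein of stem and progenitor cells, averaged 2.84 ± 0.951 CPM in IFN-alpha-pMC and 9.32 ± 3.83 CPM in control tumours (log2 fold change -1.71). Ttbk1, a tau kinase, averaged 2.21 ± 1.63 CPM in IFN-alpha-pMC and 8.02 ± 2.85 CPM in control tumours (log2 fold change -1.83), and Wipf3, an actin regulator, 10.6 ± 5.27 CPM in IFN-alpha-pMC and 34.0 ± 14 CPM in control tumours (log2 fold change -1.67). The predicted genes Gm13340 and Gm13341 fell too. Gm13340 averaged 4.19 ± 2.18 CPM in IFN-alpha-pMC and 25.2 ± 7.11 CPM in control tumours (log2 fold change -2.58, SE 0.59, adjusted p = 0.00794), and Gm13341 averaged 2.48 ± 1.19 CPM in IFN-alpha-pMC and 15.1 ± 8.93 CPM in control tumours (log2 fold change -2.61, SE 0.60, adjusted p = 0.00792). Among the genes called lower the largest losses in CPM were those of Fasn, Hgsnat, Atp6v0a1, Hbb-bs, Trp53inp2 and Pisd-ps1. Hgsnat, a lysosomal acetyltransferase, averaged 491 ± 43.0 CPM in IFN-alpha-pMC and 746 ± 60.4 CPM in control tumours. Atp6v0a1, a proton pump subunit, averaged 213 ± 79.8 CPM in IFN-alpha-pMC and 394 ± 156 CPM in control tumours. Trp53inp2, an autophagy regulator, averaged 283 ± 42.0 CPM in IFN-alpha-pMC and 439.5 ± 66.6 CPM in control tumours, and Pisd-ps1, a pseudogene, 169 ± 22.3 CPM in IFN-alpha-pMC and 321 ± 112 CPM in control tumours. These 4 were close to the threshold: their adjusted p was 0.0498, 0.0462, 0.0437 and 0.0474, and each call was lost without IFN-alpha-pMC library 1 or 2 or control library 1 or 2, with a highest adjusted p of 0.188, 0.203, 0.195 and 0.158. Of 13 circadian clock genes 3 fell. The number of clock genes called lower was 0 without IFN-alpha-pMC library 1. It was 1 without IFN-alpha-pMC library 2, without control library 1, without control library 2 or when the muscle score was a covariate. Without both libraries numbered 3 it was 6, where 20.6% of all genes tested fell. Hlf averaged 2.44 ± 0.636 CPM in IFN-alpha-pMC and 5.84 ± 1.64 CPM in control tumours (log2 fold change -1.26, SE 0.29, adjusted p = 0.00873), a call lost without IFN-alpha-pMC library 1 (adjusted p = 0.051). Per1, a core repressor of the clock, averaged 30.4 ± 11.8 CPM in IFN-alpha-pMC and 62.5 ± 21.4 CPM in control tumours (adjusted p = 0.122; without both libraries numbered 3, log2 fold change -1.31 and adjusted p = 0.0391). The clock output gene Dbp averaged 2.44 ± 0.166 CPM in IFN-alpha-pMC and 2.54 ± 0.768 CPM in control tumours (adjusted p = 0.936), and Nr1d1, the repressor Rev-erb alpha, 12.9 ± 5.82 CPM in IFN-alpha-pMC and 10.3 ± 3.75 CPM in control tumours (adjusted p = 0.536).

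Skeletal muscle, the tissue beneath a hindlimb tumour, differed between groups and also within the controls. Of 23 muscle fibre genes tested 6 rose and none fell, with a median log2 fold change of 2.55. In 17 of them all 3 IFN-alpha-pMC libraries lay above all 3 controls, which held for 13.3% of all genes tested. The number of muscle fibre genes called higher was 14 without control library 1. Ckm, muscle creatine kinase, had 146, 190.1 and 228 CPM in IFN-alpha-pMC tumours, against 71.0, 1.22 and 20.6 CPM in control tumours (adjusted p = 0.143). Myh4, a fast myosin, had 227, 244 and 753 CPM in IFN-alpha-pMC tumours, against 153, 6.50 and 23.1 CPM in control tumours (adjusted p = 0.172). Atp2a1, the calcium pump of fast fibres, had 113, 130.5 and 342 CPM in IFN-alpha-pMC tumours, against 88.9, 3.10 and 12.8 CPM in control tumours (adjusted p = 0.159). Control library 1 was close to the IFN-alpha-pMC libraries and control library 2 was the lowest for all 3 genes. Casq1, a calcium store protein of fibres, averaged 64.4 ± 23.9 CPM in IFN-alpha-pMC and 6.19 ± 4.47 CPM in control tumours (log2 fold change 3.38), and Tcap averaged 45.7 ± 12.8 CPM in IFN-alpha-pMC and 1.24 ± 1.29 CPM in control tumours (log2 fold change 5.18). Ano5, a muscle membrane protein, averaged 5.17 ± 2.87 CPM in IFN-alpha-pMC and 0.227 ± 0.0805 CPM in control tumours (log2 fold change 4.46, SE 0.75, adjusted p = 0.000635). The summed level of the list was 2527, 3238 and 5060 CPM in IFN-alpha-pMC libraries, against 1326, 84.4 and 299 CPM in control libraries. When the muscle score was a covariate the test called 839 genes higher (5.65%) and 117 lower (0.788%) in all; 805 of the 1303 and 78 of the 298 remained. The named genes whose call was lost with it, beside those given above, were Ifnar2 (adjusted p = 0.084), Cxcr3 (0.157), Ido1 (0.087), Fasl (0.0523), Fas (0.228), Bcl2a1b (0.172) and Ano5 (0.116) among those that rose. Among those that fell they were Sqle (0.104), Cdh5 (0.0532), Kcnj8 (0.166), Ednrb (0.0677), Adamts1 (0.196), Hba-a1 (0.121), Hbb-bs (0.0719), Hbb-bt (0.052), Msi1 (0.108), Gm13340 (0.0617), Gm13341 (0.141), Hgsnat (0.186), Atp6v0a1 (0.105), Trp53inp2 (0.243) and Pisd-ps1 (0.146). A lost call was not always a smaller difference: the log2 fold change under the covariate was 4.90 for Ido1, 2.14 for Bcl2a1b, 2.97 for Fasl, -1.39 for Cdh5, -3.08 for Hbb-bs and -0.70 for Sqle, against 4.33, 1.95, 2.88, -1.09, -2.66 and -0.71 without it. It was smaller for others, such as 2.62 against 4.46 for Ano5 and 1.70 against 2.1 for Fas. The score is made of the same 23 genes, so their own values under that covariate are not read. None of 6 genes of muscle stem cells and regeneration passed. The number of those called lower was 2 without both libraries numbered 3 or when the muscle score was a covariate. Over all genes tested these fits called 20.6 and 0.788% lower, in that order.

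Of 22 fibroblast and matrix genes 4 rose. Those that rose numbered 1 when the muscle score was a covariate, 2 without IFN-alpha-pMC library 3 or without control library 2 and 7 without both libraries numbered 3. Over all genes tested these fits called 5.65, 8.47, 6.77 and 23.1% higher, in that order, against 8.78% over all libraries. Thy1, shared by fibroblasts and T cells, had 78.7, 88.3 and 76.2 CPM in IFN-alpha-pMC tumours, against 15.5, 11.6 and 23.2 CPM in control tumours (log2 fold change 2.28, SE 0.22, adjusted p = 7.32e-06). Dcn, decorin, had 34.3, 41.2 and 41.0 CPM in IFN-alpha-pMC tumours, against 15.5, 4.62 and 18.7 CPM in control tumours (log2 fold change 1.59, SE 0.39, adjusted p = 0.0134). Col1a1, the main fibrillar collagen, had 37.1, 76.3 and 184 CPM in IFN-alpha-pMC tumours, against 126, 30.6 and 72.4 CPM in control tumours (adjusted p = 0.776), with overlapping groups. Col3a1 averaged 252 ± 65.0 CPM in IFN-alpha-pMC and 135 ± 71.6 CPM in control tumours (adjusted p = 0.283). The Dcn call was lost when the muscle score was a covariate (adjusted p = 0.211), whereas Thy1 kept it (0.000316). Of 9 keratinocyte genes 1 could be tested, and it was not called.

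**Figure D3:**
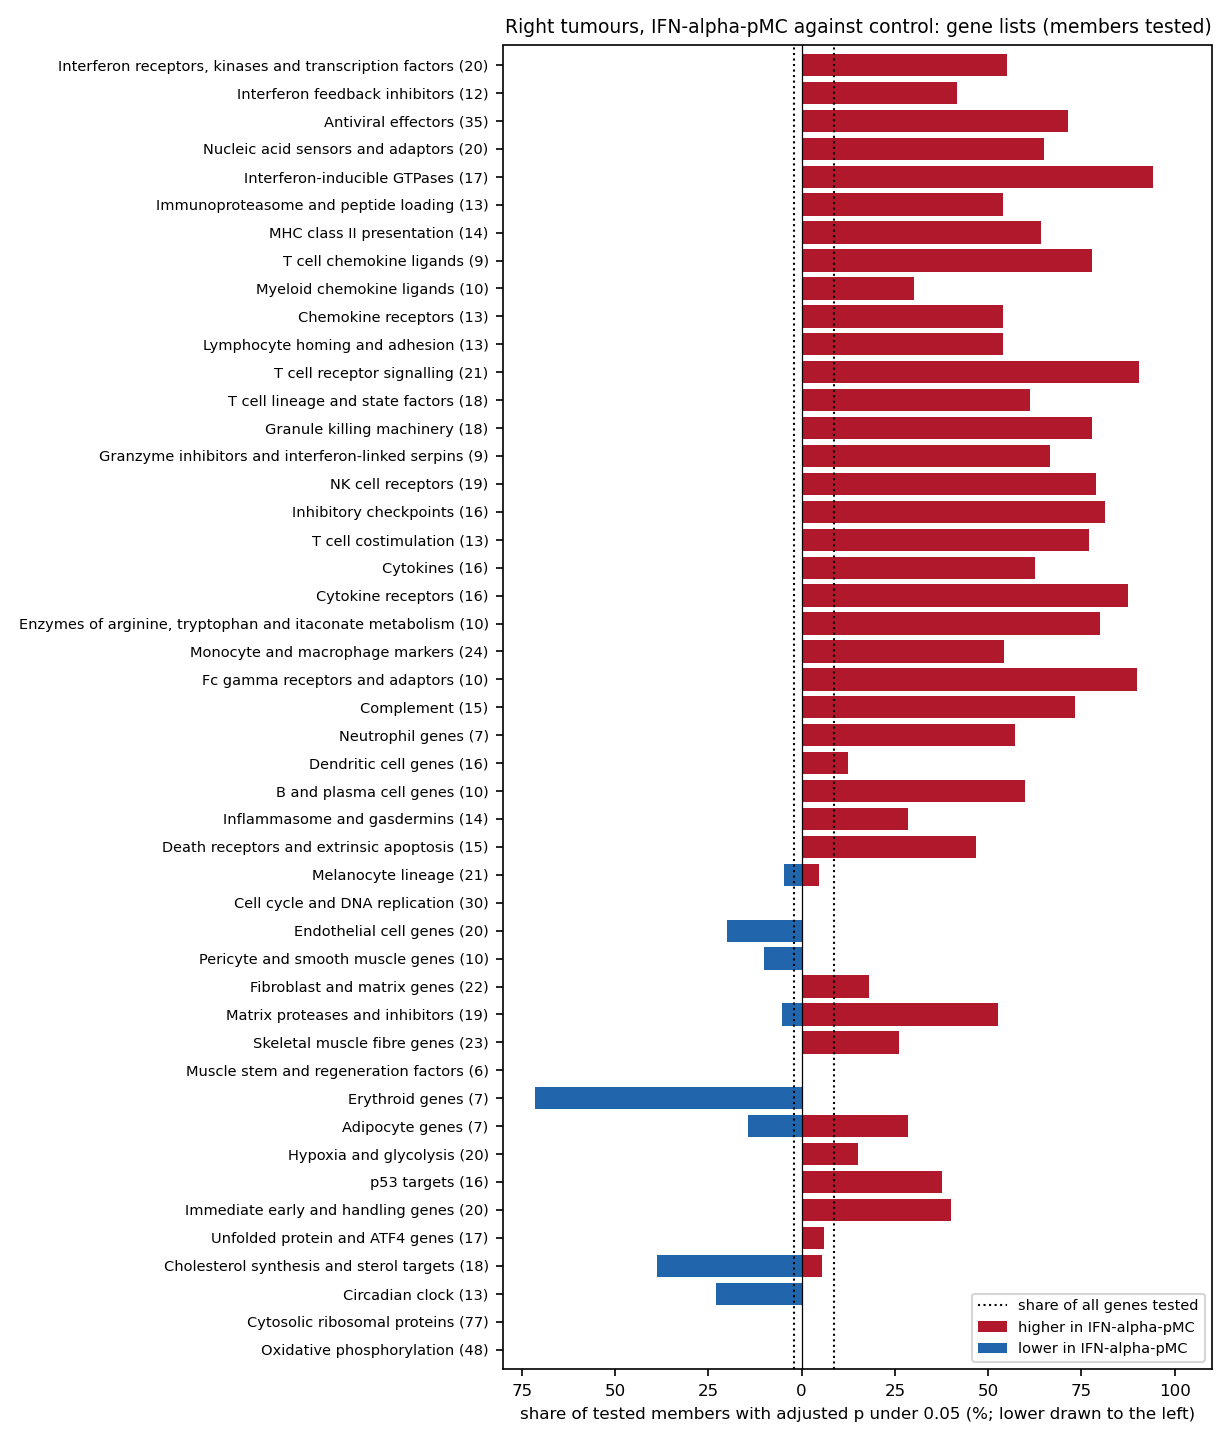
Share of tested members of each gene list that was called higher (red, to the right) or lower (blue, to the left) in IFN-alpha-pMC against control right tumours; the number of members tested is in brackets and the dotted lines mark the shares over all 14849 genes, 8.78% higher and 2.01% lower. Interferon, lymphocyte and myeloid lists lie to the right, sterol, endothelial and erythroid lists to the left, and the cell cycle, muscle stem, ribosomal protein and oxidative phosphorylation lists have no bar.

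The group given iPSC-pMCs without the interferon label was used to set the injection of cells apart from that label. IFN-alpha-pMC tumours differed from iPSC-pMC tumours in 1497 genes, 1318 higher (8.88%) and 179 lower (1.21%). This comparison also holds a difference in muscle RNA. The muscle score was 1.83, 2.93 and 2.22 in the iPSC-pMC libraries, against 5.6, 5.72 and 6.73 in the IFN-alpha-pMC libraries. Against iPSC-pMC tumours 15 of 23 muscle fibre genes were called higher. With the muscle score as a covariate 748 genes were called in all. Of the 1303 genes higher than in control tumours, 1093 were also called higher against iPSC-pMC tumours, and of the 298 lower genes 110 were also called lower; both comparisons share the IFN-alpha-pMC libraries. Between iPSC-pMC and control right tumours edgeR called no gene, 359 genes had an unadjusted p under 0.05 (2.42%) and DESeq2 called 2 (0.0135%). Irf7 averaged 57.9 ± 3.05 CPM in iPSC-pMC tumours (SD, n = 3), against 54.6 ± 13.5 CPM in control tumours, and the log2 fold change of IFN-alpha-pMC over iPSC-pMC tumours was 2.08 (adjusted p = 4.35e-06). For Gzmb that value was 4.74 (adjusted p = 4.46e-06), for Cd8a 2.48 (0.000301), for Arg1 5.80 (0.000645) and for Cd274 1.83 (0.000237). The log2 fold change of Sqle was -0.61 (adjusted p = 0.0419), while Fasn was -1.2 (0.0746) and Cdh5 -0.65 (0.296), which did not pass. None of the 20 endothelial genes was called against iPSC-pMC tumours. Of the 7 erythroid genes 2 fell against them, of the 18 sterol genes 8 fell and of the 22 fibroblast and matrix genes 14 rose.

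**Figure D4:**
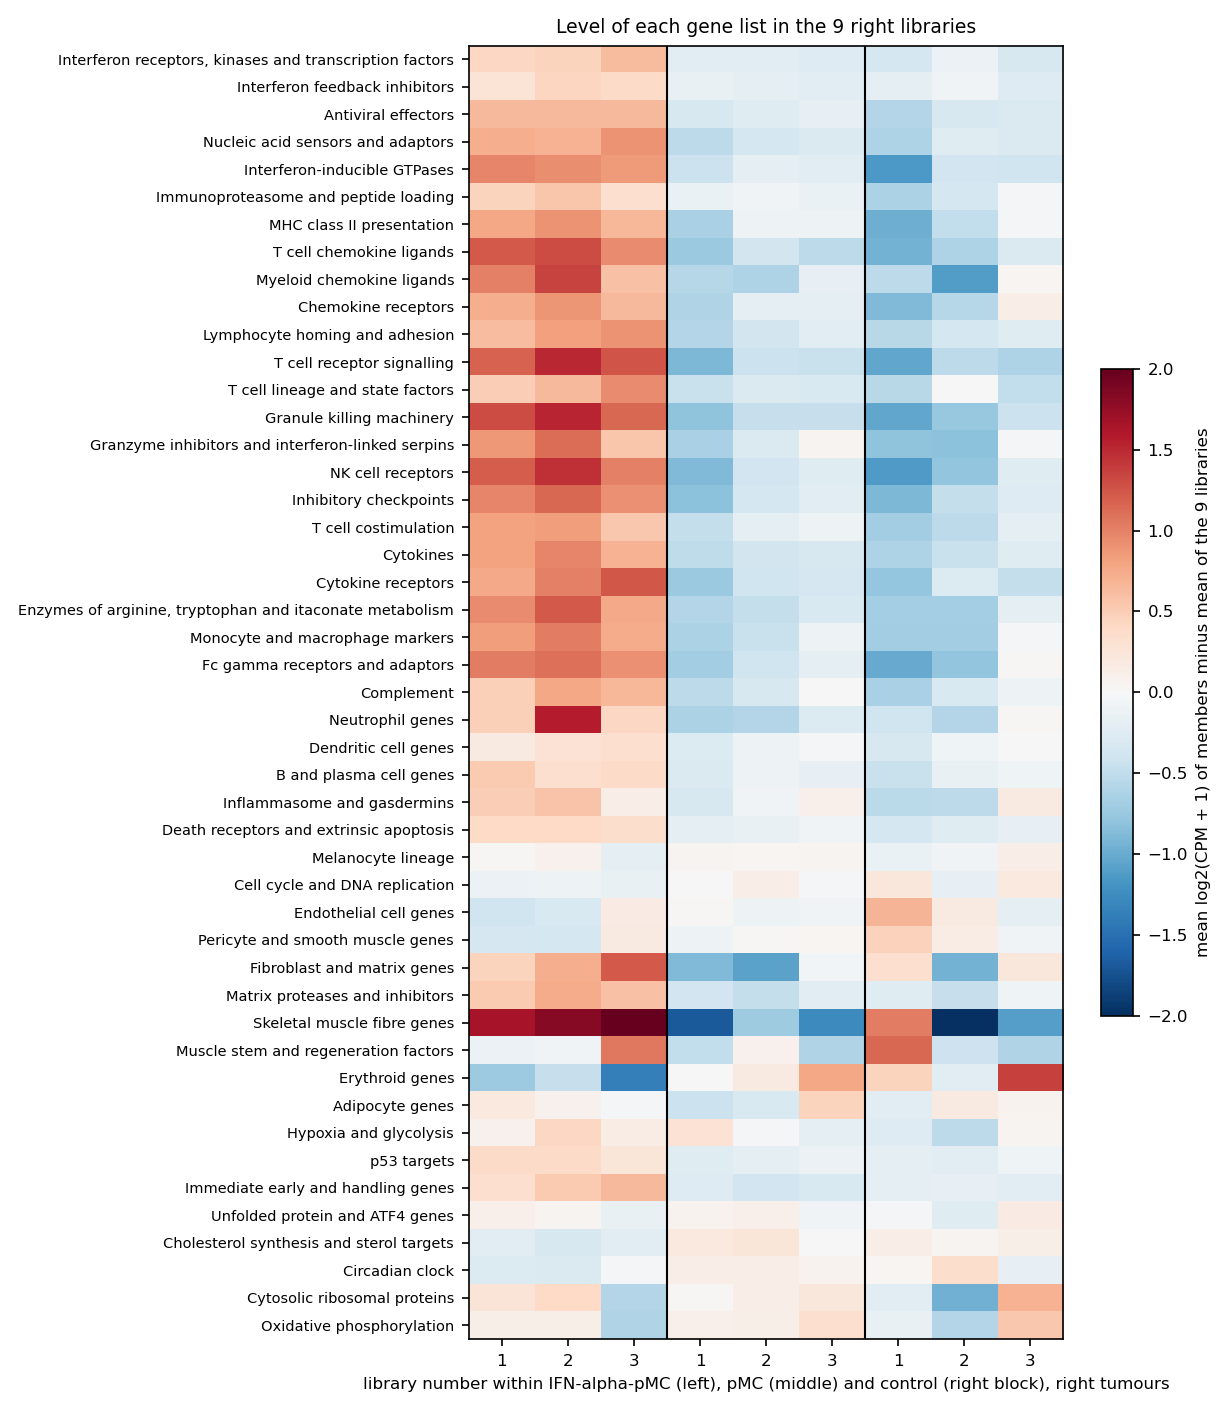
Mean log2(CPM + 1) of the tested members of each list, minus the mean of the 9 right libraries, for IFN-alpha-pMC (left block), pMC (middle block) and control (right block) tumours, libraries 1 to 3 in each block; red is above and blue below the 9-library mean, with the colour scale capped at 2. The interferon, T cell, killing and myeloid rows are red in every IFN-alpha-pMC library, and the muscle row differs among control libraries. The ribosomal protein row changes sign at library 3 of the IFN-alpha-pMC and control blocks, in opposite directions, and not in the pMC block.

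Whether the change on the injected side differed from that of the distant left tumours was tested as the right effect minus the left effect of IFN-alpha-pMC against control. No gene passed by edgeR over all libraries, 918 genes had an unadjusted p under 0.05 (6.18%) and DESeq2 called 87 (0.586%). By edgeR the count was 7 with no filter on low counts (0.0298%), 14 with the offset for length and GC content (0.0943%), 41 with the replicate number as a block (0.276%) and 99 without both right libraries numbered 3 (0.66%). Right and left tumours grew in the same mice, but the labels do not say which libraries share a mouse. For Irf7 the difference of log2 fold changes was 1.13 with an SE of 0.25 (adjusted p = 0.137), for Gzmb 2.37 with an SE of 0.58 (0.166) and for Arg1 2.11 with an SE of 1.46 (0.743).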

How the data were processed

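RNA sequencing counts of 18 tumour libraries were analysed, 3 in each of 6 groups, and the 6 right-side libraries of the IFN-alpha-pMC and control groups are described. The counts deposited by the authors are read pairs per gene. The submitters' processing notes name CASAVA 1.8.2, bcl2fastq, FastQC, Trimmomatic 0.36, HISAT2 2.1.0, HTSeq 0.10.0, DESeq2 1.20.0 and build mm9. Which annotation and strand setting were used is not given in the sources used here, and reads from overlapping antisense genes may be mixed. Per the deposited files, pairs aligning to several places (18.4 to 24.3% of pairs in these 6 libraries) or to no feature are not in the gene counts, which can understate near-identical genes.

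Counts were fitted with edgeR 4.0.16 in R 4.3.3 (TMM, filterByExpr, 1 mean per group over all 18 libraries, 12 residual degrees of freedom, biological coefficient of variation 23.7%) and the quasi-likelihood F test, on 14849 genes at an adjusted p under 0.05. DESeq2 1.42.0, other size factors, no filter, the compared groups alone, replicate number as a block, libraries left out, the muscle score as a covariate and an offset on transcript length and GC content (known for 96.9% of the genes tested) were alternatives. The deviations of same-numbered right IFN-alpha-pMC and control libraries correlated at -0.34, -0.47 and -0.76. Those of differently numbered right libraries correlated at -0.33 to 0.62. The libraries numbered 3 deviated in opposite directions, so these values cannot decide whether a shared number marks a pair. Between same-numbered right and left libraries the correlation was 0.30, -0.25 and 0.44 for IFN-alpha-pMC and 0.60, 0.13 and -0.02 for control, and whether these share a mouse is not in the labels. No 2 libraries held identical values.

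Genes named are anchor genes of each list, the 10 highest and 10 lowest fold changes without overlap above 5 CPM, the 6 largest gains and losses in CPM, and the member of each list with the smallest p. A further 34 named genes were chosen after their values were seen. Some genes that fall under the rule are not reported here. The gene lists and the members were chosen with earlier results of these data known. Promoter sequences are from RefSeq (GRCm38.p6) and were matched by symbol; no coordinates of mm9 were used.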

Additional observations from a re-analysis of the deposited data

How the results depend on the processing

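Of 211 named genes tested, 160 passed the threshold; 130 of these passed in every fit with 1 library left out, 160 with DESeq2, 157 after the correction for length and GC content, 155 without both right libraries numbered 3, 148 with the replicate block, 132 with the muscle score as a covariate and 105 with the 2 groups fitted alone. Without right IFN-alpha-pMC library 3, right control library 3 and left IFN-alpha-pMC library 1, 156 passed, and 5 named genes that were not called changed sign, to a log2 fold change of 0.51 for Tyr, 0.50 for Pcna, -0.41 for Nr1d1, 0.51 for Ndufa4 and 0.58 for Cox4i1. The cause was not tested.

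The count of genes higher against control (1303) was 566 with the 2 groups fitted alone, 839 with the muscle score as a covariate, 4261 without those 3 libraries and 3471 without both right libraries numbered 3, and ran from 970 to 1962 with 1 library left out, the highest without control library 3. The count of lower genes (298) was 677 with DESeq2, 16 with the 2 groups alone, 188 with the replicate block, 117 with the muscle score, 790 after the length and GC correction, 3914 without the 3 libraries and 3085 without both libraries numbered 3. With 1 library left out it was 97 without IFN-alpha-pMC library 1, 80 without 2, 1833 without 3, 120 without control library 1, 179 without 2 and 1984 without 3. The 1497 genes called against iPSC-pMC tumours became 748 with the muscle score, 2593 after the length and GC correction, 4287 without the 3 libraries and 3243 without both libraries numbered 3, and ran from 1134 to 1925 with 1 library left out. For the right minus left effect (0 genes) the count was 7 with no filter on low counts, 87 with DESeq2, 41 with the replicate block, 14 after the length and GC correction, 761 without the 3 libraries and 99 without both libraries numbered 3, and ran from 0 to 13 with 1 library left out. The last 2 results need other groups and could not be run on the 2 groups alone. Other size factors and the filter on low counts left the main counts within 1.5 times, at 1255 and 1356 higher and 332 and 302 lower.

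The replicate block, in which same-numbered libraries share a term although the labels do not say what a number marks, gave 1246 higher and 188 lower genes and 1422 against iPSC-pMC tumours. The fit without both libraries numbered 3 was chosen after seeing the data. Depth limits genes under about 0.2 CPM, near 3 counts in a library.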
